A study of Mus musculus with 24 samples.

Results

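The livers of mice without the gene tRNA-Phe-1-1 were compared with the livers of mice without the gene tRNA-Phe-3-1 by sequencing of total liver RNA. The comparison rested on 6 of the 24 samples of the series, the 3 livers labelled as knockout of tRNA-Phe-1-1 (tRNA-Phe-1-1-/-) and the 3 labelled as knockout of tRNA-Phe-3-1 (tRNA-Phe-3-1-/-). They were chosen by these labels and not by a measured value. All 6 were mice of the C57BL/6N strain, homozygous for the loss of 1 tRNA-Phe gene. They were fed normal chow and kept with 12 h of light a day. The study's methods name male mice, while its reporting summary speaks of both sexes, and the sample titles give no sex. Each group is 1 line that goes back to 1 deletion made with a CRISPR/Cas9 guide, and the deletion is carried by every cell of the mouse. The deleted tRNA-Phe gene therefore cannot be told apart from anything else that differs between the 2 lines. The mice of the study were 10 weeks old, and the hour at which the livers were taken is not given in the sources used here. The livers of 3 wild-type (WT) mice and 3 tRNA-Phe-2-1-/- mice stood in the same table. They entered the estimate of the spread and are given as levels, because neither of the 2 groups compared is a control. The remaining 12 samples were brains of the same 4 genotypes.

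More RNA was read in tRNA-Phe-1-1-/- than in tRNA-Phe-3-1-/- livers for 25 of 35 acute phase genes, 16 of 26 chaperones of the endoplasmic reticulum (ER), 14 of 21 heat shock proteins, mostly cytosolic, and 13 of 26 glucocorticoid-responsive genes. Among protein-coding genes with a mean of at least 50 counts and separate groups, the largest rises were those of the metallothioneins Mt2 and Mt1 and of the serum amyloids Saa2 and Saa1. Less was read for 13 of 29 bile acid genes, 15 of 46 cytochromes P450 and 19 of 43 conjugating enzymes. These genes passed a test by limma at an adjusted p under 0.05, as 16.1% of all genes tested did. The WT mean was nearer to tRNA-Phe-3-1-/- than to tRNA-Phe-1-1-/- for 1990 of all 2550 genes that passed.

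Transfer RNA for phenylalanine pairs its GAA anticodon with the phenylalanine codons of a messenger RNA and brings phenylalanine to the ribosome. The mouse genome holds several tRNA-Phe genes with this anticodon, and genes that share the anticodon but differ elsewhere in the tRNA body are called isodecoders. The liver is a secretory organ: hepatocytes fold most plasma proteins in the ER, make bile acids from cholesterol, clear foreign compounds with cytochromes P450 and conjugating enzymes, and raise the acute phase proteins when cytokines signal inflammation. Unfolded protein in the ER raises ER chaperones through the unfolded protein response, and unfolded protein in the cytosol raises heat shock proteins.

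The guide was gcgttagactgaagatctaaAGG, with its PAM in capitals, and it had 7 exact matches in the GRCm39 assembly, 1 in each of the 7 tRNA-Phe genes the study named. The 2 genes compared are shown as 73-base windows on the strand of the tRNA, with the guide and PAM in capitals, because they show how little the 2 deleted genes differ.
tRNA-Phe-1-1: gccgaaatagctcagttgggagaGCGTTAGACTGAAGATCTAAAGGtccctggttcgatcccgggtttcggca
tRNA-Phe-3-1: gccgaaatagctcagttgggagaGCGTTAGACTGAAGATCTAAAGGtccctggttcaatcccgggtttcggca
Counted from 1 at the 5′ end of the window, tRNA-Phe-3-1 differs from tRNA-Phe-1-1 by G57A, and the GAA anticodon stands at positions 34 to 36 of both. The window of tRNA-Phe-1-1 is identical to those of 4 further genes, tRNA-Phe-1-2 to tRNA-Phe-1-5, whereas no other window equals that of tRNA-Phe-3-1. tRNA-Phe-1-1 lies at chr5:125483119-125483191 on the minus strand of GRCm39, outside any gene of the GENCODE annotation of that assembly. tRNA-Phe-3-1 lies at chr13:22067055-22067127 on the minus strand, within an intron of the long non-coding RNA gene Gm56563. The study's sequence of the tRNA-Phe-1-1 line lacks 20 bases, positions 41 to 60, which are in capitals in the next line.
tRNA-Phe-1-1, deleted bases: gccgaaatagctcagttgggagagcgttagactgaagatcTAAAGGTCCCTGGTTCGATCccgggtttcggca
Transcripts of the tRNA-Phe genes were not analysed here, so the genotype labels could not be checked against the deleted gene.

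The values were reads per gene divided by a size factor for each library, called normalised counts here. Totals of the 6 libraries ran from 37310878 to 45204856 reads. The livers carried hepatocyte RNA, with a summed level of 10 hepatocyte markers of 2945850 to 3359810 normalised counts in tRNA-Phe-1-1-/- and 3782290 to 4210200 in tRNA-Phe-3-1-/-. Over the 6 livers, Alb, which encodes albumin, gave 1308113 to 2477751 of these counts. Of the 10 markers 2, Tat and Hnf4a, were called higher in tRNA-Phe-1-1-/- and none lower. The call of Hnf4a was lost without tRNA-Phe-1-1-/- A, B or C or tRNA-Phe-3-1-/- A or C (adjusted p from 0.0592 to 0.128). No marker of the 10 was called in a fit of the 6 livers alone. The mean log2 deviation of the 10 from their average over the livers ran from -0.0090 to 0.18 in tRNA-Phe-1-1-/- and from -0.0078 to 0.079 in tRNA-Phe-3-1-/-, which overlap. One library stood somewhat apart within its own group: tRNA-Phe-1-1-/- B differed by more than 2-fold from the mean of its 2 companions at 1326 genes, tRNA-Phe-1-1-/- A did so at 668 and the other 4 libraries at 892 to 1136. Counts of the main gene lists are given with and without it.

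A fit of limma to log2(normalised count + 1) over all 12 livers tested the 15856 genes whose mean over those livers reached 10 normalised counts. At a Benjamini-Hochberg adjusted p under 0.05, 2550 genes differed between the 2 knockouts, which is 16.1% of the genes tested. Of these, 1182 (7.45%) were higher and 1368 (8.63%) were lower in tRNA-Phe-1-1-/-. The median size of a called difference was 0.66 on the log2 scale. Above 2-fold the numbers were 361 higher and 362 lower, above 4-fold 95 and 94, and above 8-fold 28 and 26. The groups of 3 did not overlap for 2494 of the called genes, and they did not overlap for 31.8% of all genes tested. The count rested in part on single libraries. Without tRNA-Phe-1-1-/- A it was 1512 (630 higher, 882 lower), and without tRNA-Phe-3-1-/- C there were 880 lower genes. A fit of the 6 livers alone called 931 genes (5.87%), of which 911 were also called over 12 livers. The p-values measure the spread between these livers. With 3 against 3 samples an exact permutation test of 1 gene could not go below p = 0.1, so no such test was used.

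**Figure D1:**
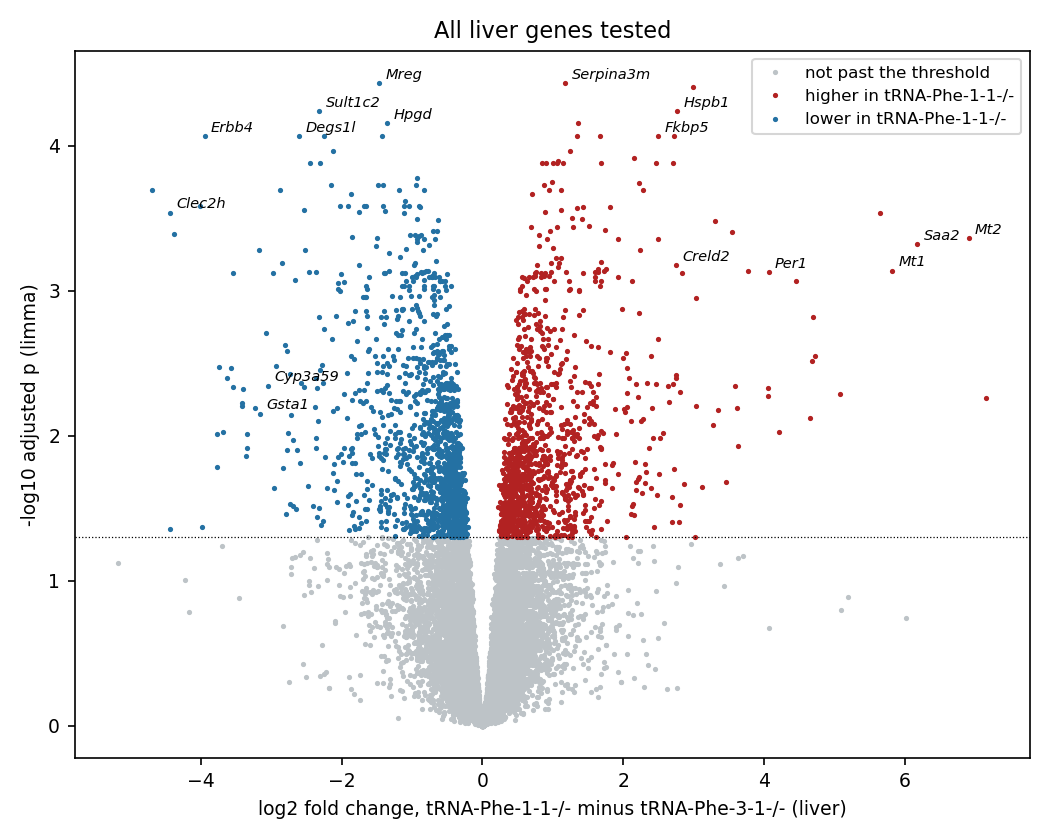
Each point is 1 of 15856 liver genes. The horizontal axis is the log2 difference of tRNA-Phe-1-1-/- minus tRNA-Phe-3-1-/- and the vertical axis is -log10 of the adjusted p from limma, with the dotted line at 0.05. The 1182 higher and 1368 lower genes spread to both sides, and Mt2, Saa2 and Mt1 lie farthest to the right among the genes named.

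The called genes were placed against the other 2 genotypes without a test. The WT mean lay nearer to tRNA-Phe-3-1-/- than to tRNA-Phe-1-1-/- for 1990 of the 2550 called genes (78.0%), and the tRNA-Phe-2-1-/- mean did so for 2314 (90.7%). At 1548 called genes the 3 WT livers were apart from tRNA-Phe-1-1-/- and overlapped tRNA-Phe-3-1-/-, at 406 it was the reverse, at 405 they were apart from both and at 191 they overlapped both.

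Blood and immune cell markers differed between the groups. Of 8 red cell markers tested, 6 were lower in tRNA-Phe-1-1-/- and none was higher, and their sum was 11613 to 13964 normalised counts in tRNA-Phe-1-1-/- livers, 26972 to 33449 in tRNA-Phe-3-1-/- livers and 19857 to 26118 in WT livers. The alpha globin gene Hba-a1 was read at 1795, 1775 and 2067 in tRNA-Phe-1-1-/- and 4372, 5268 and 5389 in tRNA-Phe-3-1-/-. Its log2 difference, tRNA-Phe-1-1-/- minus tRNA-Phe-3-1-/- as for all differences here, was -1.41 ± 0.23 (SE, adjusted p = 0.00281), and the 2 groups did not overlap. The beta globin gene Hbb-bs, with a difference of -1.36 ± 0.23 (adjusted p = 0.00315), moved alike. Of 12 lymphocyte markers, 8 differences were below 0 and 4 above 0. Of the 12, 4 were called lower and none higher (33.3%, against 16.1% of all genes), and all 4 mark B cells. Of these, Ms4a1, which encodes CD20, was read at 5.65, 3.53 and 6.14 in tRNA-Phe-1-1-/- and 58.6, 39.4 and 32.2 in tRNA-Phe-3-1-/-. Every tRNA-Phe-1-1-/- liver lay below every tRNA-Phe-3-1-/- liver for it. The call of Ighm, another of the 4, was lost without tRNA-Phe-1-1-/- A or B or tRNA-Phe-3-1-/- A, B or C (adjusted p from 0.0652 to 0.136). The 4 neutrophil markers above the count filter summed to 223 to 525 in tRNA-Phe-1-1-/- and 105 to 144 in tRNA-Phe-3-1-/-, with S100a9 at 95, 143 and 54.2 in tRNA-Phe-1-1-/- and 37.5, 27 and 14.1 in tRNA-Phe-3-1-/- (adjusted p = 0.0744). None of the 4 passed the test with limma, 3 had an unadjusted p under 0.05 and 1 was called by edgeR, and 9 other neutrophil markers, among them Ly6g, Mpo and Elane, were under the filter. Kupffer cell markers summed to 10990 to 15729 and 11618 to 18286, which overlap. In whole liver, fewer cells of a type and less RNA per cell cannot be told apart.

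Among protein-coding genes with a mean of at least 50 counts over the 6 livers, the largest rises in tRNA-Phe-1-1-/- were of genes for metal-binding and acute phase proteins. Mt2, a metallothionein that binds zinc and copper (ENSMUSG00000031762.7, chr8:94172618-94173567, GRCm38.p6 as for all gene positions here), was read at 1147, 8695 and 521 in tRNA-Phe-1-1-/- and 25.9, 11.3 and 8.04 in tRNA-Phe-3-1-/-, in the order A, B, C that holds throughout. Every tRNA-Phe-1-1-/- liver was above every tRNA-Phe-3-1-/- liver, with B far above A and C. The log2 difference was 6.91 ± 0.81 (adjusted p = 0.000433), and it was 5.75 without tRNA-Phe-1-1-/- B and 7.78 without tRNA-Phe-1-1-/- C. Mt1, its neighbour with the same function (ENSMUSG00000031765.8, chr8:94178883-94180327), was read at 6662, 22706 and 2488 in tRNA-Phe-1-1-/- and 244, 90 and 91.5 in tRNA-Phe-3-1-/-. Its difference was 5.83 ± 0.74 (adjusted p = 0.000726), or 5.00 without tRNA-Phe-1-1-/- B and 6.59 without tRNA-Phe-1-1-/- C. WT livers, with 26.4, 22.7 and 46.7 counts of Mt2 and 81.1, 228 and 415 of Mt1, were under all 3 tRNA-Phe-1-1-/- livers for both genes. Both kept their call whichever of the 6 libraries was left out.

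Serum amyloid A, a plasma protein that hepatocytes release in inflammation, followed. Saa1 (ENSMUSG00000074115.5, chr7:46740497-46743181) was read at 32101, 43648 and 9799 in tRNA-Phe-1-1-/- and 497, 349 and 622 in tRNA-Phe-3-1-/-. Saa2 (ENSMUSG00000057465.5, chr7:46751833-46754313) was read at 22583, 35421 and 4757 in tRNA-Phe-1-1-/- and 401, 154 and 159 in tRNA-Phe-3-1-/-. The lowest tRNA-Phe-1-1-/- liver, C, was still far above the highest tRNA-Phe-3-1-/- liver for both. The log2 difference of Saa1 was 5.65 ± 0.62 (adjusted p = 0.000289), or 6.29 without tRNA-Phe-1-1-/- C. That of Saa2 was 6.18 ± 0.74 (adjusted p = 0.000479), or 5.59 without tRNA-Phe-1-1-/- B and 7.04 without tRNA-Phe-1-1-/- C. Saa3 (ENSMUSG00000040026.8, chr7:46711998-46719615), which macrophages and fat also make, was at 1304, 5807 and 277 in tRNA-Phe-1-1-/- and 167, 66.4 and 28.2 in tRNA-Phe-3-1-/-, with no overlap. Its difference of 4.21 ± 0.89 (adjusted p = 0.00949) became 3.12 without tRNA-Phe-1-1-/- B, 5.32 without tRNA-Phe-1-1-/- C, 4.86 without tRNA-Phe-3-1-/- A and 3.59 without tRNA-Phe-3-1-/- C. Since the Saa genes are near copies, the split of shared reads among them is uncertain. Lcn2, which encodes lipocalin, a protein that binds bacterial siderophores (ENSMUSG00000026822.14, chr2:32384637-32387739), was at 1298, 3388 and 356 in tRNA-Phe-1-1-/- and 66.3, 6.75 and 75.4 in tRNA-Phe-3-1-/-, again with no overlap. Its difference was 5.09 ± 0.95 (adjusted p = 0.00519) and moved to 4.32 without tRNA-Phe-1-1-/- B, 5.94 without tRNA-Phe-1-1-/- C and 4.02 without tRNA-Phe-3-1-/- B.

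Further large rises were of uptake and signalling genes. Scara5, a scavenger receptor that takes up ferritin (ENSMUSG00000022032.14, chr14:65666403-65764826), was read at 2562, 2275 and 1849 in tRNA-Phe-1-1-/- and 87.4, 21.4 and 337 in tRNA-Phe-3-1-/-. Its log2 difference of 4.66 ± 0.94 (adjusted p = 0.00756) became 3.68 without tRNA-Phe-3-1-/- B and 5.63 without tRNA-Phe-3-1-/- C. Cxcl1, a chemokine that draws neutrophils (ENSMUSG00000029380.11, chr5:90891245-90893121), was at 3833, 2959 and 1811 in tRNA-Phe-1-1-/- and 428, 87.8 and 209 in tRNA-Phe-3-1-/-, a difference of 3.78 ± 0.48 (adjusted p = 0.000726), or 3.19 without tRNA-Phe-3-1-/- B. For both genes every tRNA-Phe-1-1-/- liver was above every liver of the other 3 genotypes. The same held for Rgs1, a regulator of G protein signalling in immune cells (ENSMUSG00000026358.13, chr1:144244669-144249104), at 516, 615 and 282 in tRNA-Phe-1-1-/- and 87.4, 25.9 and 19.1 in tRNA-Phe-3-1-/-, with a difference of 3.63 ± 0.80 (adjusted p = 0.0118), or 4.27 without tRNA-Phe-3-1-/- A. The clock genes Per1 and Ciart and the ER gene Derl3, also among the 12 largest rises, are described with their groups.

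The largest fall of a protein-coding gene with a mean of at least 50 counts and separate groups was of Clec2h, a C-type lectin-like surface protein (ENSMUSG00000030364.6, chr6:128662385-128677374), at 25.4, 39.7 and 47.1 in tRNA-Phe-1-1-/- and 1014, 646 and 804 in tRNA-Phe-3-1-/-. Every tRNA-Phe-1-1-/- liver was far below every tRNA-Phe-3-1-/- liver, and the WT livers, with 150, 798 and 519 counts, lay between the groups or with tRNA-Phe-3-1-/-. The log2 difference was -4.44 ± 0.48 (adjusted p = 0.000289). Erbb4, a receptor tyrosine kinase for neuregulins (ENSMUSG00000062209.15, chr1:68031884-69108576), was at 26.3, 24.7 and 53.2 in tRNA-Phe-1-1-/- and 392, 654 and 542 in tRNA-Phe-3-1-/-, a difference of -3.95 ± 0.32 (adjusted p = 8.53e-05). WT livers at 356, 413 and 393 and tRNA-Phe-2-1-/- livers at 229, 424 and 466 stood near tRNA-Phe-3-1-/-. Abcd2, a peroxisomal transporter of very long chain fatty acids (ENSMUSG00000055782.9, chr15:91145871-91192007), was at 125, 212 and 53.2 in tRNA-Phe-1-1-/- and 2903, 1709 and 566 in tRNA-Phe-3-1-/-, a difference of -3.64 ± 0.64 (adjusted p = 0.00401), or -4.30 without tRNA-Phe-3-1-/- C. Rfx4, a transcription factor (ENSMUSG00000020037.15, chr10:84756036-84906538), was at 18.8, 1.76 and 17.4 in tRNA-Phe-1-1-/- and 71.1, 107 and 158 in tRNA-Phe-3-1-/-, a difference of -3.42 ± 0.66 (adjusted p = 0.00623), or -2.49 without tRNA-Phe-1-1-/- B. Neither Abcd2 nor Rfx4 had overlapping groups.

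Other large falls were of genes with unlike functions. Aqp8, a water channel of the hepatocyte (ENSMUSG00000030762.11, chr7:123462294-123468003), was at 439, 220 and 1038 in tRNA-Phe-1-1-/- and 2539, 4596 and 3841 in tRNA-Phe-3-1-/-, a log2 difference of -2.93 ± 0.50 (adjusted p = 0.00331). Spon2, a secreted matrix protein (ENSMUSG00000037379.7, chr5:33213518-33218254), was at 70.6, 45 and 94.1 in tRNA-Phe-1-1-/- and 647, 354 and 534 in tRNA-Phe-3-1-/-, a difference of -2.87 ± 0.29 (adjusted p = 0.000202). Degs1l was at 102, 68.8 and 116 in tRNA-Phe-1-1-/- and 667, 653 and 427 in tRNA-Phe-3-1-/-, a difference of -2.60 ± 0.22 (adjusted p = 8.53e-05). These 3 genes had groups that did not overlap. Ncam2, a neural cell adhesion molecule (ENSMUSG00000022762.18, chr16:81200697-81624290), was at 13.2, 25.6 and 28.7 in tRNA-Phe-1-1-/- and 278, 50.6 and 172 in tRNA-Phe-3-1-/-, with a wide spread within tRNA-Phe-3-1-/-. Its difference of -2.60 ± 0.61 (adjusted p = 0.0155) lost its call without tRNA-Phe-1-1-/- A or tRNA-Phe-3-1-/- A or C (adjusted p from 0.0504 to 0.0612), and it was -3.30 without tRNA-Phe-3-1-/- B. The falls of Gsta1, Cyp3a59, Cyp2c55 and Slco1a4 are given with the enzymes and transporters.

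The lowest adjusted p values went to genes with a small spread within groups. Serpina3m, a serine protease inhibitor of plasma, was read at 15408, 14322 and 15779 in tRNA-Phe-1-1-/- and 6274, 6993 and 6828 in tRNA-Phe-3-1-/-, a log2 difference of 1.18 ± 0.07 (adjusted p = 3.69e-05). Mreg, which encodes melanoregulin, was at 505, 537 and 499 in tRNA-Phe-1-1-/- and 1434, 1456 and 1385 in tRNA-Phe-3-1-/-, a difference of -1.47 ± 0.10 (adjusted p = 3.69e-05). Within each group these counts stayed close together, and the groups were more than 2-fold apart. Hpgd, which inactivates prostaglandins, was at 1119, 1168 and 1244 in tRNA-Phe-1-1-/- and 3000, 3076 and 2930 in tRNA-Phe-3-1-/-, a difference of -1.35 ± 0.10 (adjusted p = 7.03e-05). Sult1c2, a sulfotransferase, was at 47.1, 39.7 and 42 in tRNA-Phe-1-1-/- and 223, 250 and 184 in tRNA-Phe-3-1-/-, a difference of -2.32 ± 0.17 (adjusted p = 5.79e-05). Both were low in all 3 tRNA-Phe-1-1-/- livers. Fbxo31, which picks proteins for ubiquitination, was at 2376, 2535 and 2527 in tRNA-Phe-1-1-/- and 883, 1131 and 917 in tRNA-Phe-3-1-/-, a difference of 1.35 ± 0.10 (adjusted p = 7.03e-05). Snx10, a sorting nexin of endosomes, was at 3072, 3085 and 2448 in tRNA-Phe-1-1-/- and 841, 798 and 1072 in tRNA-Phe-3-1-/-, a difference of 1.67 ± 0.14 (adjusted p = 8.53e-05). These were high in all 3 tRNA-Phe-1-1-/- livers.

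**Figure D2:**
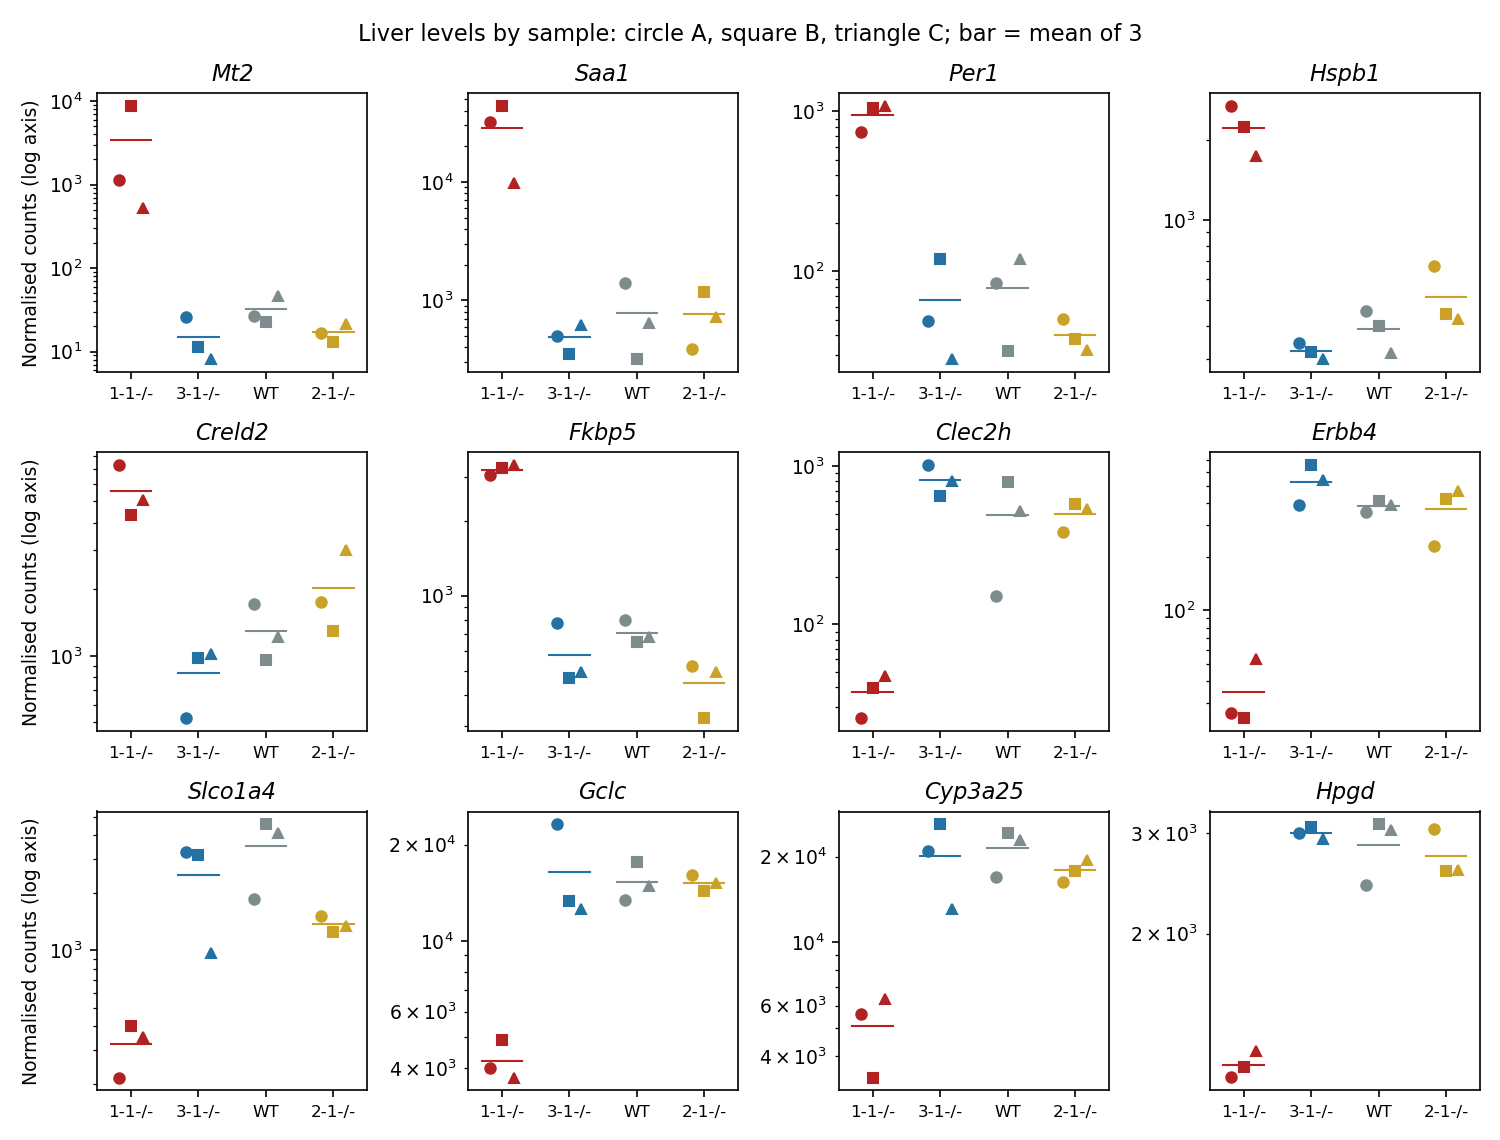
Normalised counts on a log axis for 12 genes in the 3 livers of each of the 4 genotypes, with circles, squares and triangles for samples A, B and C and a bar at the mean of 3. Mt2, Saa1, Per1, Hspb1, Creld2 and Fkbp5 are highest in the tRNA-Phe-1-1-/- livers and Clec2h, Erbb4, Slco1a4, Gclc, Cyp3a25 and Hpgd are lowest there, while the tRNA-Phe-3-1-/- points lie near the WT points in most panels.

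Acute phase proteins and the factors that raise them were higher in tRNA-Phe-1-1-/-. Of 35 members tested, 25 rose and none fell, so that 71.4% were called against 16.1% of all genes tested. All 35 log2 differences were above 0, with a median of 1.18 against -0.01 over all genes tested. Steap4, a metalloreductase that inflammation raises, was read at 26200, 35321 and 13792 in tRNA-Phe-1-1-/- and 3816, 3414 and 3508 in tRNA-Phe-3-1-/-, a log2 difference of 2.71 ± 0.25 (adjusted p = 0.000131). Lrg1, a plasma glycoprotein, was at 11442, 15953 and 7941 in tRNA-Phe-1-1-/- and 2170, 2387 and 2744 in tRNA-Phe-3-1-/-, a difference of 2.22 ± 0.22 (adjusted p = 0.000182). Saa4, a form of serum amyloid A made at all times, was at 28469, 22000 and 16534 in tRNA-Phe-1-1-/- and 3191, 3332 and 5823 in tRNA-Phe-3-1-/-, a difference of 2.46 ± 0.22 (adjusted p = 0.000131). Each of these had groups that did not overlap. Hp, which encodes haptoglobin, the plasma protein that binds free haemoglobin, was at 239542, 280777 and 161971 in tRNA-Phe-1-1-/- and 70909, 53107 and 67606 in tRNA-Phe-3-1-/-, a difference of 1.81 ± 0.19 (adjusted p = 0.000266). Crp, which encodes C-reactive protein, was at 10464, 11973 and 8572 in tRNA-Phe-1-1-/- and 6578, 6083 and 6883 in tRNA-Phe-3-1-/-, a difference of 0.65 ± 0.11 (adjusted p = 0.00251). The groups of Hp and Crp did not overlap, and the gap was smaller for Crp.

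Regulators of this response moved too. Cebpd, a transcription factor that drives acute phase genes, was read at 414, 648 and 518 in tRNA-Phe-1-1-/- and 118, 110 and 90.5 in tRNA-Phe-3-1-/-, a log2 difference of 2.28 ± 0.23 (adjusted p = 0.000202). Stat3, which carries the interleukin signal to the nucleus, was at 7765, 8490 and 6719 in tRNA-Phe-1-1-/- and 4764, 3639 and 4375 in tRNA-Phe-3-1-/-, a difference of 0.85 ± 0.13 (adjusted p = 0.00195). Neither gene had overlapping groups. Socs3, the feedback inhibitor of Stat3, was at 787, 984 and 604 in tRNA-Phe-1-1-/- and 516, 206 and 339 in tRNA-Phe-3-1-/-, a difference of 1.23 ± 0.31 (adjusted p = 0.0227). Its call was lost without tRNA-Phe-1-1-/- A or B or tRNA-Phe-3-1-/- B or C (adjusted p from 0.0552 to 0.0731). Orm2, an acid glycoprotein of plasma, was at 1706, 1825 and 377 in tRNA-Phe-1-1-/- and 229, 168 and 322 in tRNA-Phe-3-1-/-, with tRNA-Phe-1-1-/- C near tRNA-Phe-3-1-/- C. Its difference of 2.19 ± 0.56 (adjusted p = 0.0236) lost its call without tRNA-Phe-1-1-/- A or B or tRNA-Phe-3-1-/- A or B (adjusted p from 0.0534 to 0.09) and was 2.93 without tRNA-Phe-1-1-/- C. Over the whole list, 18 members were called in the fit of 6 livers, 21 without tRNA-Phe-1-1-/- B, and 19 to 27 over the 6 fits that left out 1 of these livers. The neutrophil markers S100a8, at 39.5, 71.4 and 14.3 in tRNA-Phe-1-1-/- and 17.3, 6.75 and 7.04 in tRNA-Phe-3-1-/-, and S100a9 were higher in tRNA-Phe-1-1-/- than in tRNA-Phe-3-1-/- on average without passing the test, and the part of neutrophils in these values was not tested.

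Of 9 metallothioneins and zinc carriers tested, 4 rose and 1 fell, with a median of 0.55. Mt1 and Mt2 are members of this list, of the acute phase list and of the glucocorticoid list. Slc39a14, which encodes ZIP14 and brings zinc and iron into hepatocytes, was read at 17362, 19024 and 17589 in tRNA-Phe-1-1-/- and 6378, 8791 and 5503 in tRNA-Phe-3-1-/-, a log2 difference of 1.41 ± 0.16 (adjusted p = 0.000321). Mtf1, the zinc sensor that turns on the metallothionein genes, was at 904, 943 and 1010 in tRNA-Phe-1-1-/- and 564, 676 and 716 in tRNA-Phe-3-1-/-, a difference of 0.55 ± 0.10 (adjusted p = 0.00537). Both had separate groups.

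ER chaperones and folding enzymes were higher in tRNA-Phe-1-1-/-. Of 26 members, 16 rose and none fell (61.5% called), 25 of the 26 differences were above 0, and the median was 0.61. The largest was Creld2, a disulfide isomerase of the ER, at 7263, 4347 and 5046 in tRNA-Phe-1-1-/- and 521, 978 and 1018 in tRNA-Phe-3-1-/-, a log2 difference of 2.75 ± 0.35 (adjusted p = 0.000668). Its lowest tRNA-Phe-1-1-/- liver was above the highest of every other genotype. Sdf2l1, a co-factor of the chaperone BiP, was at 2750, 2629 and 2444 in tRNA-Phe-1-1-/- and 810, 668 and 966 in tRNA-Phe-3-1-/-, a difference of 1.69 ± 0.21 (adjusted p = 0.000633). Hyou1, an ER relative of the heat shock proteins, was at 24231, 19965 and 19734 in tRNA-Phe-1-1-/- and 5267, 7175 and 8192 in tRNA-Phe-3-1-/-, a difference of 1.65 ± 0.21 (adjusted p = 0.000746). Hspa5, which encodes BiP itself, the central chaperone of the ER, was at 58512, 40623 and 51810 in tRNA-Phe-1-1-/- and 18819, 24068 and 28109 in tRNA-Phe-3-1-/-, a difference of 1.09 ± 0.19 (adjusted p = 0.00367). For these 3 genes no tRNA-Phe-3-1-/- liver reached the lowest tRNA-Phe-1-1-/- liver. The tRNA-Phe-2-1-/- livers stood between the groups for Sdf2l1, Hyou1 and Creld2, with Creld2 at 1751, 1289 and 3008. For Hspa5, at 30402, 26922 and 41236, they overlapped both groups.

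Other chaperones of the list rose by less than 2.5-fold. Manf, a secreted survival factor of stressed cells, was at 6048, 4016 and 5595 in tRNA-Phe-1-1-/- and 1455, 2443 and 2899 in tRNA-Phe-3-1-/-, a log2 difference of 1.24 ± 0.25 (adjusted p = 0.0083). Dnajb11, a partner of BiP, was at 5802, 5435 and 5064 in tRNA-Phe-1-1-/- and 2236, 2393 and 2948 in tRNA-Phe-3-1-/-, a difference of 1.11 ± 0.14 (adjusted p = 0.0006). Hsp90b1, the ER form of HSP90, was at 42723, 43445 and 34343 in tRNA-Phe-1-1-/- and 18467, 18395 and 22860 in tRNA-Phe-3-1-/-, a difference of 1.01 ± 0.18 (adjusted p = 0.00366). None of these had overlapping groups. Pdia3, a disulfide isomerase for glycoproteins, was at 15532, 16644 and 13991 in tRNA-Phe-1-1-/- and 8020, 7558 and 8443 in tRNA-Phe-3-1-/-, a difference of 0.94 ± 0.09, and its adjusted p of 0.000202 was the smallest among these chaperones. Dnajc3, an inhibitor of the kinase PERK, was at 18220, 17482 and 17088 in tRNA-Phe-1-1-/- and 8993, 8988 and 11045 in tRNA-Phe-3-1-/-, a difference of 0.87 ± 0.11 (adjusted p = 0.000794). The isomerase Pdia6 was at 13184, 13382 and 12688 in tRNA-Phe-1-1-/- and 7148, 7092 and 9405 in tRNA-Phe-3-1-/-, a difference of 0.74 ± 0.13 (adjusted p = 0.00397). These 3 were separate between the groups with little spread. The lectin chaperone calreticulin (Calr) had a difference of 0.56 ± 0.11 (adjusted p = 0.00636). Its partner calnexin (Canx) had one of 0.26 ± 0.08 (adjusted p = 0.0466), a call lost without tRNA-Phe-1-1-/- A or B or tRNA-Phe-3-1-/- A or B (adjusted p from 0.104 to 0.127). Over the fits that left out 1 of the 6 livers, 13 to 17 members were called, with 17 without tRNA-Phe-1-1-/- B.

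Of 40 genes for import into the ER, glycosylation, ER-associated degradation and signalling of the unfolded protein response, 11 rose and none fell, with a median of 0.22. Derl3, a channel component of ER-associated degradation (ENSMUSG00000009092.5, chr10:75893398-75895941), was at 425, 385 and 378 in tRNA-Phe-1-1-/- and 35.5, 21.4 and 42.2 in tRNA-Phe-3-1-/-, a log2 difference of 3.59 ± 0.65 (adjusted p = 0.00454). Syvn1, the ubiquitin ligase of the same pathway, was at 3383, 2489 and 2360 in tRNA-Phe-1-1-/- and 745, 1033 and 690 in tRNA-Phe-3-1-/-, a difference of 1.74 ± 0.20 (adjusted p = 0.00038). For both the groups stood apart. Edem1, which hands misfolded glycoproteins to degradation, had a smaller difference of 0.44 ± 0.08 (adjusted p = 0.00631), and Rpn1, a subunit of the oligosaccharyltransferase, one of 0.49 ± 0.10 (adjusted p = 0.00646). Xbp1, a transcription factor of the unfolded protein response, was at 11755, 12308 and 10998 in tRNA-Phe-1-1-/- and 8152, 10189 and 8006 in tRNA-Phe-3-1-/-, a difference of 0.42 ± 0.12 (adjusted p = 0.0413) whose call was lost without tRNA-Phe-1-1-/- A, B or C or tRNA-Phe-3-1-/- A or C (adjusted p from 0.0504 to 0.128). Herpud1, another gene of this response, did not pass the test, at 22053, 11279 and 27962 in tRNA-Phe-1-1-/- and 9107, 14479 and 9454 in tRNA-Phe-3-1-/- (adjusted p = 0.0753), and overlapped between the groups. The count of this list depended on single libraries: it was 5 without tRNA-Phe-1-1-/- A and 6 without tRNA-Phe-3-1-/- A, and 3 in the fit of 6 livers.

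The ER stress element, CCAAT and CCACG with 9 bases between them, is the site that the unfolded protein response factor ATF6 uses in promoters of ER chaperones. Among RefSeq promoters of GRCm38.p6, from 250 bases before to 50 after the start of transcription, 10764 genes tested here had a sequence, and 21 of them (0.195%) held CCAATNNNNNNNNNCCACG on either strand. It stood in 8 of 21 promoters of the ER chaperone list (38.1%), in 11 of 851 promoters of genes higher in tRNA-Phe-1-1-/- (1.29%) and in 0 of 1012 promoters of genes lower there. The matches in called genes are printed 5′ to 3′ on the strand that holds them, with the fixed letters in capitals, because they are what the promoters of these risen genes share.
Hspa5, chr2:34772025-34772043, plus strand: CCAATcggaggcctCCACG
Creld2, chr15:88819520-88819538, minus strand: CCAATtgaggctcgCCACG
Dnajc3, chr14:118937827-118937845, plus strand: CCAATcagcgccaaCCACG
Hsp90b1, chr10:86705533-86705551, plus strand: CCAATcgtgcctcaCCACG
Hsp90b1, chr10:86705638-86705656, minus strand: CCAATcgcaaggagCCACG
Pdia6, chr12:17266491-17266509, plus strand: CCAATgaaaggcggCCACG
Calr, chr8:84847075-84847093, plus strand: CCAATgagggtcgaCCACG
Canx, chr11:50325800-50325818, minus strand: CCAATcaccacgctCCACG
Derl3, chr10:75893242-75893260, minus strand: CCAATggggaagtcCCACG
Syvn1, chr19:6046532-6046550, plus strand: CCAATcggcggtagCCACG
Hnrnpa3, chr2:75659017-75659035, minus strand: CCAATggcgagagcCCACG
The match of Creld2 is also the match of its divergent neighbour Alg12, a mannosyltransferase with a log2 difference of 0.63 ± 0.19 (adjusted p = 0.0486), a call lost without tRNA-Phe-1-1-/- A, B or C or tRNA-Phe-3-1-/- A, B or C (adjusted p from 0.0535 to 0.151). Hnrnpa3, an RNA-binding protein outside the list, was at 3122, 3498 and 2439 in tRNA-Phe-1-1-/- and 2225, 1800 and 1969 in tRNA-Phe-3-1-/-, a difference of 0.59 ± 0.12 (adjusted p = 0.00943) with no overlap. A match is a description of the letters and not a measured site of binding.

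Heat shock proteins, mostly of the cytosol, were higher in tRNA-Phe-1-1-/-. The list also holds the mitochondrial Hspe1. Of 21 members, 14 rose and none fell (66.7% called), all 21 differences were above 0, and the median was 0.93. Hspb1, a small heat shock protein that holds unfolded proteins (ENSMUSG00000004951.10, chr5:135887919-135889563), was at 2678, 2244 and 1739 in tRNA-Phe-1-1-/- and 346, 318 and 300 in tRNA-Phe-3-1-/-, a log2 difference of 2.77 ± 0.20 (adjusted p = 5.8e-05). Hsph1, an exchange factor for HSP70, was at 4532, 3541 and 3882 in tRNA-Phe-1-1-/- and 779, 941 and 956 in tRNA-Phe-3-1-/-, a difference of 2.16 ± 0.19 (adjusted p = 0.000122). For both the groups lay far apart with little spread in either. The inducible HSP90 gene Hsp90aa1 was at 19669, 16334 and 16119 in tRNA-Phe-1-1-/- and 5584, 4452 and 6248 in tRNA-Phe-3-1-/-, a difference of 1.69 ± 0.16 (adjusted p = 0.000131). The constitutive Hsp90ab1 was at 29313, 28226 and 25578 in tRNA-Phe-1-1-/- and 13938, 12939 and 13044 in tRNA-Phe-3-1-/-, a difference of 1.06 ± 0.10 (adjusted p = 0.000131). Ahsa1, which speeds the HSP90 cycle, was at 4221, 4241 and 4272 in tRNA-Phe-1-1-/- and 2356, 2310 and 2451 in tRNA-Phe-3-1-/-, a difference of 0.84 ± 0.08 (adjusted p = 0.000131). Every tRNA-Phe-1-1-/- liver was above every tRNA-Phe-3-1-/- liver for these HSP90 genes.

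The constitutive HSP70 gene Hspa8 was at 66104, 54555 and 81839 in tRNA-Phe-1-1-/- and 27389, 38694 and 34414 in tRNA-Phe-3-1-/-, a log2 difference of 1.01 ± 0.19 (adjusted p = 0.00562), and the groups did not overlap. The co-chaperone Bag3 was at 714, 503 and 581 in tRNA-Phe-1-1-/- and 258, 277 and 219 in tRNA-Phe-3-1-/-, a difference of 1.24 ± 0.17 (adjusted p = 0.000967). The inducible HSP70 genes did not pass the test. Hspa1b was at 2415, 854 and 3346 in tRNA-Phe-1-1-/- and 475, 1262 and 527 in tRNA-Phe-3-1-/- (adjusted p = 0.0766). Hspa1a was at 82.8, 50.3 and 113 in tRNA-Phe-1-1-/- and 25.9, 59.6 and 42.2 in tRNA-Phe-3-1-/- (adjusted p = 0.186). In both, tRNA-Phe-1-1-/- B lay inside the range of tRNA-Phe-3-1-/-. These genes are near-identical copies, so the split of reads between them is uncertain. The count of called members was 12 in the fit of 6 livers, 16 without tRNA-Phe-1-1-/- B and 12 to 16 when 1 of the 6 was left out.

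The heat shock element searched was GAANNTTCNNGAA on either strand, the site of heat shock factor. It stood in 62 of 10764 promoters (0.576%), in 4 of 17 promoters of the heat shock list (23.5%), in 5 of 851 promoters of higher genes (0.588%) and in 5 of 1012 of lower genes (0.494%). The share among called genes was thus near that of all promoters, while the share of the list was above it. The matches of the 3 called list members are printed with the fixed letters in capitals.
Hsph1, chr5:149636288-149636300, plus strand: GAActTTCcaGAA
Chordc1, chr9:18292263-18292275, plus strand: GAAcgTTCggGAA
Chordc1, chr9:18292268-18292280, minus strand: GAAttTTCccGAA
Chordc1, chr9:18292273-18292285, plus strand: GAAaaTTCctGAA
Hspe1, chr1:55088059-55088071, minus strand: GAAggTTCtaGAA
Hspe1, chr1:55088064-55088076, plus strand: GAAccTTCcgGAA
Chordc1, a partner of HSP90 whose 3 matches overlap one another, was read at 2363, 2239 and 2705 in tRNA-Phe-1-1-/- and 1115, 1521 and 1261 in tRNA-Phe-3-1-/-, a log2 difference of 0.91 ± 0.14 (adjusted p = 0.00181). Hspe1, a mitochondrial co-chaperonin whose promoter is shared with Hspd1, was at 3833, 4093 and 3540 in tRNA-Phe-1-1-/- and 2835, 2581 and 2554 in tRNA-Phe-3-1-/-, a difference of 0.52 ± 0.08 (adjusted p = 0.00208). Both genes were higher in all 3 tRNA-Phe-1-1-/- livers than in any tRNA-Phe-3-1-/- liver.

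**Figure D3:**
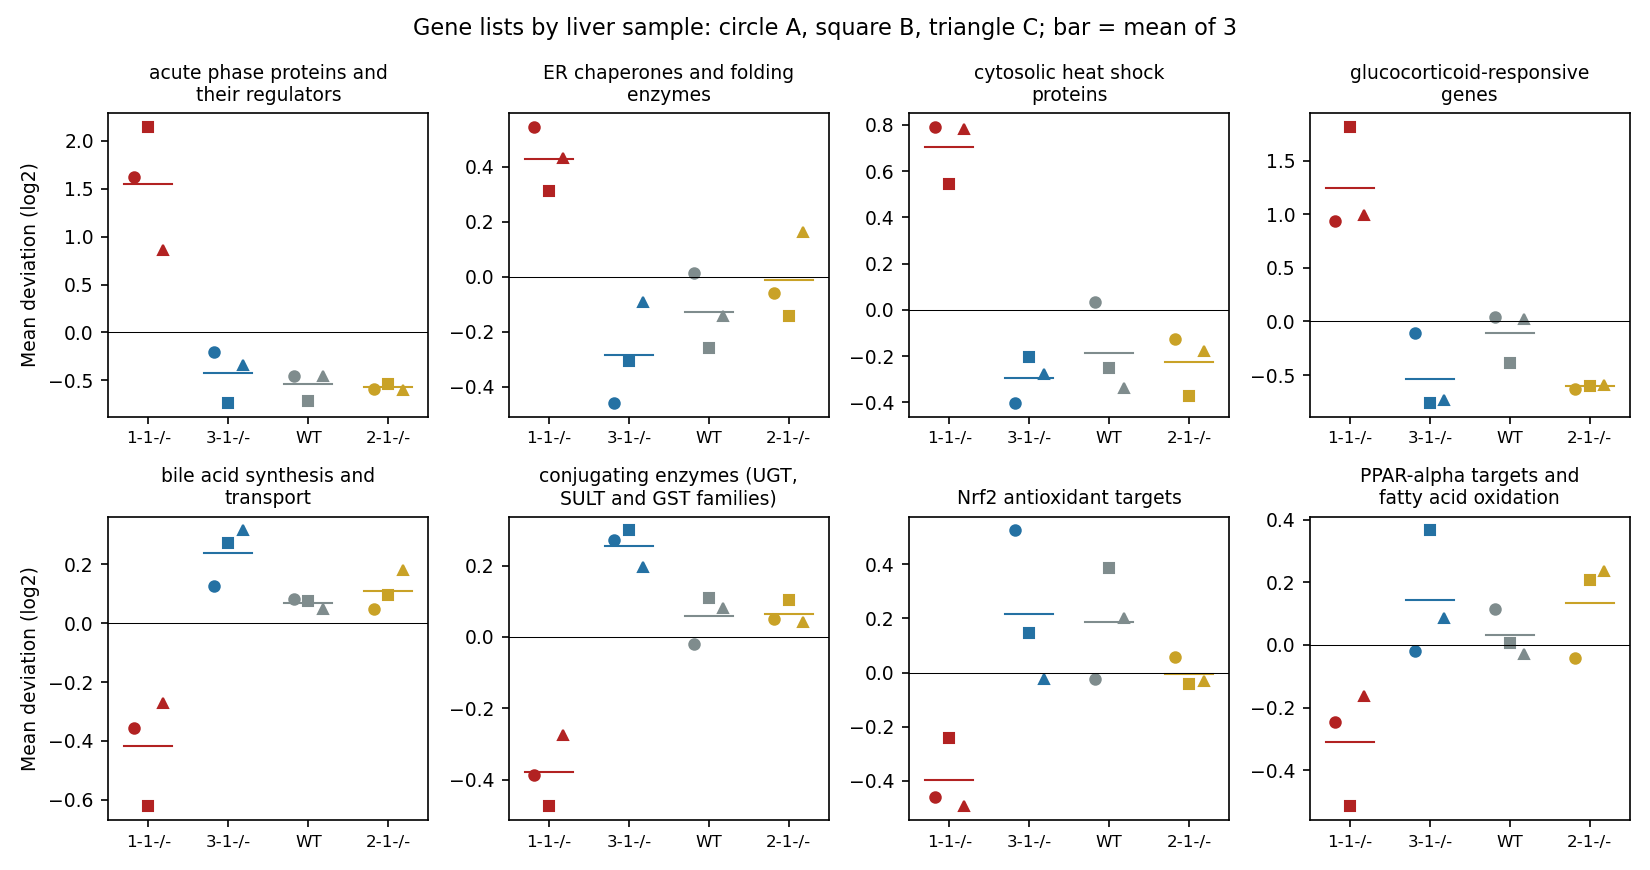
For 8 gene lists, the mean over members of the log2 deviation from the mean of the 12 livers, in each liver of the 4 genotypes, with circles, squares and triangles for samples A, B and C and a bar at the mean of 3. The tRNA-Phe-1-1-/- livers are above the tRNA-Phe-3-1-/- livers for the 4 lists of the upper row (acute phase, 0.86 to 2.15 against -0.74 to -0.20) and below them for the 4 lists of the lower row (bile acids, -0.62 to -0.27 against 0.13 to 0.32).

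Glucocorticoid-responsive genes, which corticosterone raises through its receptor, made up a further group that was higher in tRNA-Phe-1-1-/-. Of 26 members, 13 rose and 2 fell (57.7% called), with a median of 1.39. Fkbp5, a co-chaperone that dampens the receptor (ENSMUSG00000024222.17, chr17:28398753-28486149), was at 3040, 3238 and 3338 in tRNA-Phe-1-1-/- and 779, 468 and 494 in tRNA-Phe-3-1-/-, a log2 difference of 2.50 ± 0.21 (adjusted p = 8.53e-05). Its counts were almost the same in all 3 tRNA-Phe-1-1-/- livers and far above the rest. Lpin1, a phosphatidate phosphatase, was at 11936, 16834 and 24180 in tRNA-Phe-1-1-/- and 2352, 3323 and 1705 in tRNA-Phe-3-1-/-, a difference of 2.84 ± 0.37 (adjusted p = 0.00076). Zbtb16, a transcription factor, was at 1543, 1705 and 2291 in tRNA-Phe-1-1-/- and 562, 396 and 264 in tRNA-Phe-3-1-/-, a difference of 2.22 ± 0.33 (adjusted p = 0.00143). Tsc22d3, the glucocorticoid-induced leucine zipper, was at 4882, 4210 and 7120 in tRNA-Phe-1-1-/- and 1667, 1756 and 2289 in tRNA-Phe-3-1-/-, a difference of 1.48 ± 0.29 (adjusted p = 0.00631). None of these 3 had overlapping groups. Ddit4, an inhibitor of mTOR signalling, was at 211, 524 and 437 in tRNA-Phe-1-1-/- and 105, 56.3 and 118 in tRNA-Phe-3-1-/-, a difference of 2.03 ± 0.40 (adjusted p = 0.00692), also with no overlap.

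Not every member followed. Dusp1, a phosphatase of MAP kinases, did not pass the test, at 404, 645 and 444 in tRNA-Phe-1-1-/- and 148, 156 and 169 in tRNA-Phe-3-1-/- (adjusted p = 0.0647), although its groups did not overlap. WT livers A and C were above all 6 of these livers, at 1307, 226 and 1001 for A, B and C. Sgk1, a kinase, overlapped between the groups, at 705, 922 and 640 in tRNA-Phe-1-1-/- and 1179, 838 and 539 in tRNA-Phe-3-1-/- (adjusted p = 0.767). The glucocorticoid receptor itself, Nr3c1, was lower, at 4820, 4564 and 4949 in tRNA-Phe-1-1-/- and 5396, 5770 and 5846 in tRNA-Phe-3-1-/-, a log2 difference of -0.25 ± 0.06 (adjusted p = 0.0249), a call lost without tRNA-Phe-1-1-/- A or B or tRNA-Phe-3-1-/- B or C (adjusted p from 0.0606 to 0.0755). Tdo2, which opens the ring of tryptophan, had a difference of -0.44 ± 0.10 (adjusted p = 0.015), a call lost without tRNA-Phe-3-1-/- C (adjusted p = 0.0519). Between 12 and 15 members were called when 1 of the 6 livers was left out, and 13 were called in the fit of 6 livers and without tRNA-Phe-1-1-/- B. Mt1, Mt2, Lcn2, Cebpd and Per1 stand in this list as well as in others.

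Clock genes varied within the groups as well as between them. The circadian clock alternates an arm of genes in phase with Bmal1 and Npas2 with an arm of their targets, among them Dbp, Per1, Per2 and Nr1d1, so that liver levels turn with the hour. Per1, a repressor of the clock (ENSMUSG00000020893.17, chr11:69095108-69109965), was read at 740, 1047 and 1080 in tRNA-Phe-1-1-/- and 49, 120 and 28.2 in tRNA-Phe-3-1-/-, a log2 difference of 4.07 ± 0.52 (adjusted p = 0.000742). Every tRNA-Phe-1-1-/- liver was above every other liver of the 12. Per2, its partner, was at 1625, 824 and 2008 in tRNA-Phe-1-1-/- and 87.4, 417 and 353 in tRNA-Phe-3-1-/-, a difference of 2.56 ± 0.54 (adjusted p = 0.00963), or 1.85 without tRNA-Phe-3-1-/- A. Ciart, another repressor of the clock (ENSMUSG00000038550.10, chr3:95878500-95882257), was at 508, 105 and 504 in tRNA-Phe-1-1-/- and 12.5, 54 and 19.1 in tRNA-Phe-3-1-/-, a difference of 3.61 ± 0.70 (adjusted p = 0.0064), or 4.37 without tRNA-Phe-1-1-/- B. Neither Per2 nor Ciart had overlapping groups, and tRNA-Phe-1-1-/- B was the lowest of its group for both.

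Other core genes did not pass the test. Dbp, a transcription factor of the clock's output, was at 2776, 853 and 3069 in tRNA-Phe-1-1-/- and 170, 2173 and 1343 in tRNA-Phe-3-1-/-, a log2 difference of 1.29 ± 0.98 (adjusted p = 0.398). tRNA-Phe-1-1-/- B lay below tRNA-Phe-3-1-/- B and C, and all 6 were above the WT livers at 67.4, 28.7 and 67.5. Bmal1, which drives the clock's targets, was at 98.8, 466 and 101 in tRNA-Phe-1-1-/- and 1233, 290 and 433 in tRNA-Phe-3-1-/-, a difference of -1.68 ± 0.59 (adjusted p = 0.0761), against 1479, 1591 and 1889 in WT. Npas2, a partner of Bmal1, was at 3.76, 18.5 and 5.12 in tRNA-Phe-1-1-/- and 121, 11.3 and 36.2 in tRNA-Phe-3-1-/-, a difference of -2.20 ± 0.74 (adjusted p = 0.0644). Nr1d1, a repressor of Bmal1, was at 551, 473 and 486 in tRNA-Phe-1-1-/- and 641, 1237 and 887 in tRNA-Phe-3-1-/-, a difference of -0.82 ± 0.54 (adjusted p = 0.322). Among the 6 livers compared, Bmal1 and Npas2 were highest in tRNA-Phe-3-1-/- A and overlapped otherwise, while every tRNA-Phe-1-1-/- liver was below every tRNA-Phe-3-1-/- liver for Nr1d1.

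Of 15 genes in phase with Dbp, 4 rose, none fell and the median was 0.90. The fourth beside Per1, Per2 and Ciart was Usp2, a deubiquitinase, at 964, 183 and 873 in tRNA-Phe-1-1-/- and 41.3, 197 and 66.4 in tRNA-Phe-3-1-/-, a log2 difference of 2.70 ± 0.72 (adjusted p = 0.0264). Here tRNA-Phe-1-1-/- B was below tRNA-Phe-3-1-/- B. The call was lost without tRNA-Phe-1-1-/- A or C or tRNA-Phe-3-1-/- A or C (adjusted p from 0.0733 to 0.0991), and the difference was 3.47 without tRNA-Phe-1-1-/- B and 3.33 without tRNA-Phe-3-1-/- B. Of 6 genes in phase with Bmal1 none was called by limma over 12 livers, at a median of -0.36, 3 had an unadjusted p under 0.05 and edgeR called 0. Of these, 3 were called without tRNA-Phe-1-1-/- B and 2 without tRNA-Phe-3-1-/- B by limma. The part of the hour of collection in these values was not tested.

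**Figure D4:**
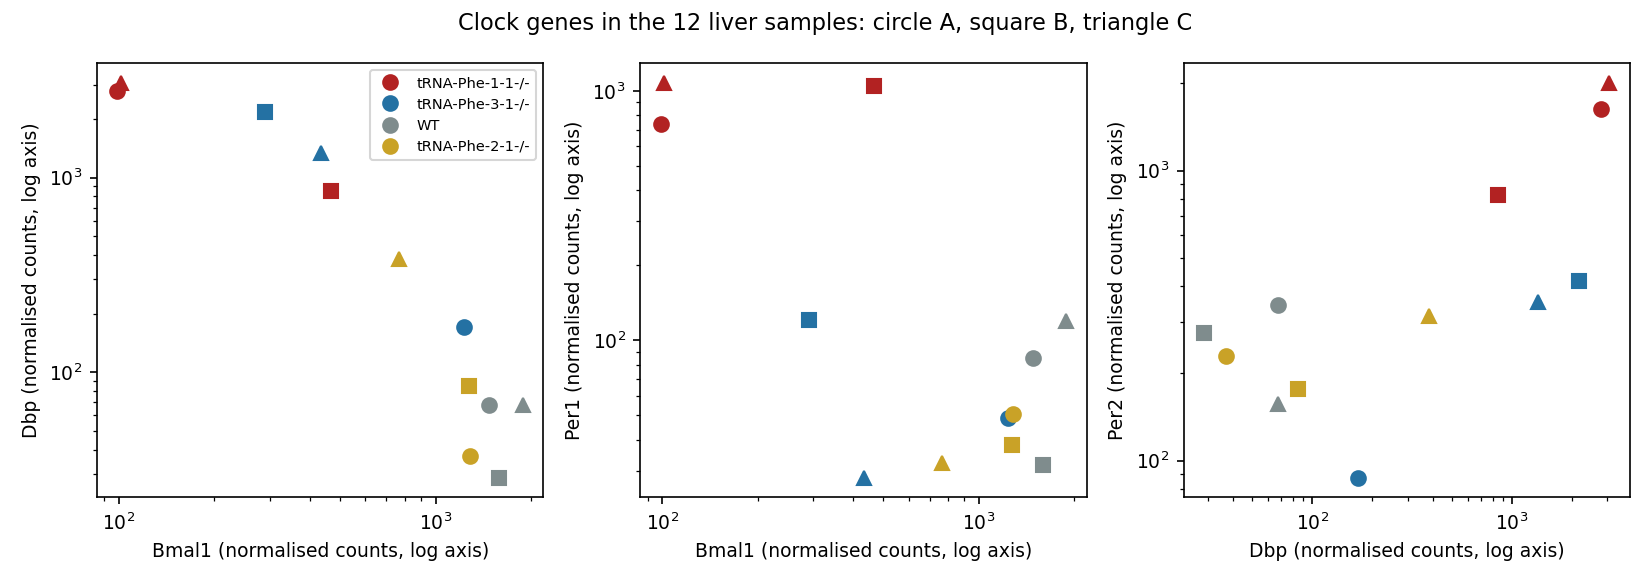
Normalised counts on log axes in the 12 livers, coloured by genotype, with circles, squares and triangles for samples A, B and C: Dbp against Bmal1 (left), Per1 against Bmal1 (middle) and Per2 against Dbp (right). In the 6 livers compared Dbp falls to 170 as Bmal1 rises from 98.8 to 1233, apart from the order of tRNA-Phe-1-1-/- A and C, whereas Per1 is high in all 3 tRNA-Phe-1-1-/- livers (740 to 1080) and does not exceed 120 in the other 9 livers.

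Genes of the integrated stress response, which the factor ATF4 raises when translation is short of amino acids or charged tRNA, differed in part. Of 28 tested, 5 rose and 1 fell (21.4% called, against 16.1% of all genes), with a median of 0.52. The count was 3 in the fit of 6 livers and 4 to 8 when 1 of these was left out. Cebpb, a transcription factor, was at 2667, 2678 and 2671 in tRNA-Phe-1-1-/- and 538, 1084 and 889 in tRNA-Phe-3-1-/-, a log2 difference of 1.73 ± 0.22 (adjusted p = 0.000726). Its partner Cebpg was at 2866, 3972 and 3105 in tRNA-Phe-1-1-/- and 1988, 2301 and 1796 in tRNA-Phe-3-1-/-, a difference of 0.70 ± 0.12 (adjusted p = 0.00361). For both the groups were separate. Gpt2, an alanine aminotransferase, had a difference of 0.69 ± 0.16 (adjusted p = 0.014). The remaining rises were those of Ddit4, given above, and Sesn2, an inhibitor of mTOR signalling whose difference of 0.49 ± 0.15 (adjusted p = 0.0486) lost its call whichever of the 6 livers was left out.

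The 1 member that fell was Cth, which makes cysteine from cystathionine, at 5981, 9568 and 5475 in tRNA-Phe-1-1-/- and 14751, 11139 and 11261 in tRNA-Phe-3-1-/-, a log2 difference of -0.85 ± 0.24 (adjusted p = 0.0332). Its groups did not overlap, and its call was lost without tRNA-Phe-1-1-/- A or C or tRNA-Phe-3-1-/- A, B or C (adjusted p from 0.0514 to 0.109). Other members did not pass the test. Asns, asparagine synthetase, was at 530, 3599 and 529 in tRNA-Phe-1-1-/- and 2437, 114 and 425 in tRNA-Phe-3-1-/- (adjusted p = 0.519). Ddit3, which encodes CHOP, was at 229, 140 and 207 in tRNA-Phe-1-1-/- and 182, 189 and 160 in tRNA-Phe-3-1-/- (adjusted p = 0.794). Both overlapped, and Asns ranged more than 6-fold within each group. Trib3, a pseudokinase, was at 84.7, 130 and 139 in tRNA-Phe-1-1-/- and 149, 297 and 286 in tRNA-Phe-3-1-/- (adjusted p = 0.139). Atf4 itself was at 3024, 2980 and 2734 in tRNA-Phe-1-1-/- and 3478, 4097 and 3198 in tRNA-Phe-3-1-/- (adjusted p = 0.112). For both, all 3 tRNA-Phe-1-1-/- livers were below all 3 tRNA-Phe-3-1-/- livers, as happened for 31.8% of all genes in either direction.

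Of 21 cytosolic aminoacyl-tRNA synthetases, which charge tRNAs with amino acids, 4 rose and none fell (19% called, against 16.1% of all genes), with a median of 0.17. The groups stood apart for 9 members that were higher and 4 that were lower, 12 of the 21 had an unadjusted p under 0.05, and 2 were called in the fit of 6 livers and without tRNA-Phe-1-1-/- A, tRNA-Phe-1-1-/- B or tRNA-Phe-3-1-/- C. Wars1, for tryptophan, was at 1149, 905 and 924 in tRNA-Phe-1-1-/- and 623, 632 and 684 in tRNA-Phe-3-1-/-, a log2 difference of 0.61 ± 0.11 (adjusted p = 0.00442). Qars1, for glutamine, was at 1883, 1971 and 1861 in tRNA-Phe-1-1-/- and 1325, 1357 and 1389 in tRNA-Phe-3-1-/-, a difference of 0.49 ± 0.10 (adjusted p = 0.00825). Both had separate groups. The synthetase for phenylalanine is built of an alpha and a beta subunit. Farsa, the alpha subunit, was at 901, 827 and 797 in tRNA-Phe-1-1-/- and 620, 774 and 639 in tRNA-Phe-3-1-/-, a difference of 0.32 ± 0.13 (adjusted p = 0.111). Farsb, the beta subunit, was at 1112, 1048 and 1161 in tRNA-Phe-1-1-/- and 1124, 1077 and 1193 in tRNA-Phe-3-1-/-, a difference of -0.03 ± 0.10 (adjusted p = 0.861). Neither passed the test. The groups of Farsa did not overlap, while those of Farsb did.

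Of 33 genes of RNA polymerase III and of tRNA processing, 2 rose and none fell (6.06% called), at a median of 0.05. Ftsj1, which methylates the anticodon loop of tRNA-Phe among others, was at 469, 423 and 460 in tRNA-Phe-1-1-/- and 356, 360 and 366 in tRNA-Phe-3-1-/-, a log2 difference of 0.32 ± 0.10 (adjusted p = 0.0476). Its groups did not overlap, but its call was lost whichever of the 6 livers was left out. Crcp, a polymerase subunit, had a difference of 0.53 ± 0.14 (adjusted p = 0.0305), a call lost without tRNA-Phe-1-1-/- A or C or tRNA-Phe-3-1-/- A or B (adjusted p from 0.067 to 0.0886). None of the list was called without tRNA-Phe-1-1-/- A, tRNA-Phe-3-1-/- A or tRNA-Phe-3-1-/- B.

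Ribosomal proteins and translation factors gave fewer calls than genes at large. Among 78 cytosolic ribosomal proteins 2 fell and none rose (2.56% called), and 71 differences were below 0 at a median of -0.12. Rpl11 was at 4670, 4877 and 4771 in tRNA-Phe-1-1-/- and 5544, 5704 and 5471 in tRNA-Phe-3-1-/-, a log2 difference of -0.22 ± 0.06 (adjusted p = 0.0269), a call lost without tRNA-Phe-1-1-/- A or tRNA-Phe-3-1-/- A, B or C (adjusted p from 0.0505 to 0.0891). The other was Rpl36, with a difference of -0.33 ± 0.10 (adjusted p = 0.0481) and groups that overlapped, a call lost without tRNA-Phe-1-1-/- A or B or tRNA-Phe-3-1-/- A or B (adjusted p from 0.109 to 0.168). When 1 of the 6 livers was left out between 0 and 5 were called, with 5 without tRNA-Phe-1-1-/- C. Of 14 elongation factors and their modifiers 1 fell, Dph1, which modifies elongation factor EEF2, with a difference of -0.35 ± 0.10 (adjusted p = 0.0397), a call lost without tRNA-Phe-1-1-/- A, B or C or tRNA-Phe-3-1-/- B or C (adjusted p from 0.0659 to 0.131). Of 18 factors that sense or rescue stalled ribosomes 1 fell, Trip4, with a difference of -0.34 ± 0.10 (adjusted p = 0.0344), a call lost without tRNA-Phe-1-1-/- B or C or tRNA-Phe-3-1-/- B or C (adjusted p from 0.0659 to 0.11).

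The share of phenylalanine codons was taken from the annotated coding sequences of 13056 tested genes. Its median was 3.53% in 1056 genes higher in tRNA-Phe-1-1-/-, 3.83% in 1218 genes lower there and 3.60% in all. In the tenth of genes with the most phenylalanine codons, above a cut of 5.77%, 82 rose and 175 fell of 1303, so 19.7% were called against 17.2% of the other genes. These are shares over genes, which are not independent of one another, and no test was made.

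Bile acid genes were lower in tRNA-Phe-1-1-/-. Of 29 genes of bile acid synthesis and transport, 13 fell and none rose (44.8% called), 26 of the 29 differences were below 0, and the median was -0.59. Hsd3b7, an early enzyme of the synthesis from cholesterol, was at 11910, 10127 and 11979 in tRNA-Phe-1-1-/- and 22965, 22002 and 28648 in tRNA-Phe-3-1-/-, a log2 difference of -1.11 ± 0.11 (adjusted p = 0.000242). Akr1d1, the reductase of the sterol ring, was at 2135, 1750 and 3573 in tRNA-Phe-1-1-/- and 5397, 6214 and 7390 in tRNA-Phe-3-1-/-, a difference of -1.40 ± 0.21 (adjusted p = 0.00169). Abcb11, the pump that moves bile salts into the canaliculus, was at 22259, 25794 and 22160 in tRNA-Phe-1-1-/- and 40076, 36313 and 39111 in tRNA-Phe-3-1-/-, a difference of -0.72 ± 0.09 (adjusted p = 0.000794). All 3 tRNA-Phe-1-1-/- livers were below all 3 tRNA-Phe-3-1-/- livers for each. WT livers, at 23557, 20107 and 20197 for Hsd3b7 and 5757, 7062 and 6935 for Akr1d1, were above all tRNA-Phe-1-1-/- livers too.

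Slco1a4, an importer of bile salts and drugs from blood (ENSMUSG00000030237.14, chr6:141805438-141856284), was at 215, 401 and 351 in tRNA-Phe-1-1-/- and 3286, 3151 and 968 in tRNA-Phe-3-1-/-, a log2 difference of -2.79 ± 0.45 (adjusted p = 0.00262). Nr0b2, which encodes SHP, the nuclear receptor that bile acids raise to shut off their synthesis, was at 610, 481 and 636 in tRNA-Phe-1-1-/- and 1237, 1566 and 2360 in tRNA-Phe-3-1-/-, a difference of -1.54 ± 0.32 (adjusted p = 0.00893). Both had separate groups, with tRNA-Phe-3-1-/- C the lowest of its group for Slco1a4 and the highest for Nr0b2. Cyp8b1, which sets the share of cholic acid, was at 7359, 1515 and 7856 in tRNA-Phe-1-1-/- and 10787, 18765 and 20095 in tRNA-Phe-3-1-/-, with B far below the other tRNA-Phe-1-1-/- livers. Its difference of -1.85 ± 0.52 (adjusted p = 0.0335) was -1.07 without tRNA-Phe-1-1-/- B, and its call was lost without tRNA-Phe-3-1-/- B or C (adjusted p from 0.0844 to 0.1). Cyp7a1, the rate-limiting enzyme of bile acid synthesis, did not pass the test, at 8031, 3604 and 4425 in tRNA-Phe-1-1-/- and 3067, 8941 and 6133 in tRNA-Phe-3-1-/- (adjusted p = 0.85), with overlapping groups. When 1 of the 6 livers was left out, 9 to 13 members were called, 13 without tRNA-Phe-1-1-/- B, and 6 in the fit of 6 livers.

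Cytochromes P450 of families 1 to 3, which oxidise drugs and steroids, were mostly lower where called. Of 46 genes tested, 15 fell and 2 rose (37.0% called), with a median of -0.39. Cyp3a59 (ENSMUSG00000061292.10, chr5:146079208-146114978) was at 94.1, 118 and 87 in tRNA-Phe-1-1-/- and 1316, 1359 and 311 in tRNA-Phe-3-1-/-, a log2 difference of -3.04 ± 0.55 (adjusted p = 0.00451), or -3.74 without tRNA-Phe-3-1-/- C. Its relative Cyp3a25 was at 5617, 3357 and 6306 in tRNA-Phe-1-1-/- and 20993, 25982 and 13093 in tRNA-Phe-3-1-/-, a difference of -1.97 ± 0.27 (adjusted p = 0.000875). In both, tRNA-Phe-3-1-/- C was the lowest of its group and still above all tRNA-Phe-1-1-/- livers. Cyp2c55 (ENSMUSG00000025002.5, chr19:39006940-39042690) was at 50.8, 28.2 and 47.1 in tRNA-Phe-1-1-/- and 403, 442 and 138 in tRNA-Phe-3-1-/-, a difference of -2.81 ± 0.45 (adjusted p = 0.00238). Cyp2j9 was at 244, 152 and 240 in tRNA-Phe-1-1-/- and 912, 782 and 596 in tRNA-Phe-3-1-/-, a difference of -1.85 ± 0.22 (adjusted p = 0.000428). Neither overlapped. Cyp2a5, a coumarin hydroxylase, was at 3991, 3163 and 5299 in tRNA-Phe-1-1-/- and 11124, 18462 and 13256 in tRNA-Phe-3-1-/-, a difference of -1.78 ± 0.28 (adjusted p = 0.00221). For it the WT livers, at 3728, 7182 and 4414, were near tRNA-Phe-1-1-/- and below all tRNA-Phe-3-1-/- livers.

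Cyp2b10, which phenobarbital raises, was close to 0 in tRNA-Phe-1-1-/-, with counts of 1.88, 2.65 and 1.02 in tRNA-Phe-1-1-/- and 201, 58.5 and 6.03 in tRNA-Phe-3-1-/-. Cyp2b9 gave 0, 1.76 and 2.05 in tRNA-Phe-1-1-/- and 65.3, 142 and 8.04 in tRNA-Phe-3-1-/-. The spread in tRNA-Phe-3-1-/- was more than 10-fold for both. Cyp2b10 had a log2 difference of -3.99 ± 1.20 (adjusted p = 0.0427) and Cyp2b9 one of -4.44 ± 1.34 (adjusted p = 0.0439), values that depend on the added count at such levels. The call of Cyp2b10 was lost without tRNA-Phe-1-1-/- A, B or C or tRNA-Phe-3-1-/- A or B (adjusted p from 0.0743 to 0.135), and that of Cyp2b9 without tRNA-Phe-1-1-/- A, B or C or tRNA-Phe-3-1-/- A or B (adjusted p from 0.0636 to 0.134). Cyp2b10 was -2.88 without tRNA-Phe-3-1-/- A and -5.31 without tRNA-Phe-3-1-/- C, and Cyp2b9 -3.59 without tRNA-Phe-3-1-/- B and -5.58 without tRNA-Phe-3-1-/- C. Cyp3a11, a main drug-metabolising enzyme of mouse liver, did not pass the test, at 20832, 20953 and 14579 in tRNA-Phe-1-1-/- and 173092, 225447 and 15661 in tRNA-Phe-3-1-/- (adjusted p = 0.0706), with tRNA-Phe-3-1-/- C inside the range of tRNA-Phe-1-1-/-. Cyp3a13 rose, at 7590, 6411 and 6474 in tRNA-Phe-1-1-/- and 4371, 3634 and 3626 in tRNA-Phe-3-1-/-, a difference of 0.82 ± 0.12 (adjusted p = 0.00163). Por, the reductase that feeds electrons to these enzymes, rose as well, with a difference of 1.41 (adjusted p = 0.00503). The number called was 9 in the fit of 6 livers, 11 without tRNA-Phe-1-1-/- B and 11 without tRNA-Phe-3-1-/- B. Many of these genes have close relatives, where the split of shared reads is uncertain.

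Conjugating enzymes, which attach glucuronic acid, sulfate or glutathione, were lower as well. Of 43 genes of the UGT, SULT and GST families, 19 fell and 2 rose (48.8% called), 40 of the 43 differences were below 0, and the median was -0.48. Ugt2b35, a glucuronosyltransferase, was at 4447, 4481 and 4005 in tRNA-Phe-1-1-/- and 10986, 13287 and 10556 in tRNA-Phe-3-1-/-, a log2 difference of -1.42 ± 0.12 (adjusted p = 8.53e-05). Gstt2, a glutathione transferase, was at 984, 728 and 1070 in tRNA-Phe-1-1-/- and 1729, 2488 and 2188 in tRNA-Phe-3-1-/-, a difference of -1.20 ± 0.18 (adjusted p = 0.0015). Both were lower in every tRNA-Phe-1-1-/- liver than in any tRNA-Phe-3-1-/- liver. Gsta1, another glutathione transferase (ENSMUSG00000074183.3, chr9:78230669-78242683), was at 20.7, 60.8 and 15.3 in tRNA-Phe-1-1-/- and 701, 194 and 116 in tRNA-Phe-3-1-/-, a difference of -3.17 ± 0.63 (adjusted p = 0.00704), or -2.43 without tRNA-Phe-3-1-/- A. Its relative Gsta2 was at 166, 375 and 247 in tRNA-Phe-1-1-/- and 1914, 1546 and 733 in tRNA-Phe-3-1-/-, a difference of -2.38 ± 0.46 (adjusted p = 0.00636). Gsta4 was at 581, 1017 and 673 in tRNA-Phe-1-1-/- and 2724, 1986 and 1440 in tRNA-Phe-3-1-/-, a difference of -1.43 ± 0.29 (adjusted p = 0.00749). All 3 had separate groups and were highest in tRNA-Phe-3-1-/- A. The rises were of Ugt2b37 (1.69) and Ugt2b38 (1.75 ± 0.22, adjusted p = 0.000708). The fit of 6 livers called 7 members, the fit without tRNA-Phe-1-1-/- B 17, and 15 to 22 were called when 1 of the 6 was left out.

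Targets of Nrf2, the factor that answers oxidants and electrophiles, fell in part. Of 26 tested, 9 fell and 1 rose (38.5% called), at a median of -0.39. Gclc, the catalytic subunit of the enzyme that limits glutathione synthesis, was at 4000, 4904 and 3735 in tRNA-Phe-1-1-/- and 23156, 13346 and 12558 in tRNA-Phe-3-1-/-, a log2 difference of -1.91 ± 0.20 (adjusted p = 0.000261). The groups were far apart, and WT livers at 13396, 17632 and 14847 stood with tRNA-Phe-3-1-/-. Gclm, its modifier subunit, was at 4832, 4347 and 4798 in tRNA-Phe-1-1-/- and 6404, 6367 and 5610 in tRNA-Phe-3-1-/-, a difference of -0.39 ± 0.09 (adjusted p = 0.0175) with no overlap, a call lost without tRNA-Phe-1-1-/- B or tRNA-Phe-3-1-/- A (adjusted p from 0.0524 to 0.0525). Aox1, an aldehyde oxidase, was at 4782, 3660 and 4005 in tRNA-Phe-1-1-/- and 8804, 7939 and 7319 in tRNA-Phe-3-1-/-, a difference of -0.96 ± 0.13 (adjusted p = 0.000794). Nqo1, a quinone reductase, was at 64, 160 and 102 in tRNA-Phe-1-1-/- and 280, 182 and 133 in tRNA-Phe-3-1-/- (adjusted p = 0.101). Hmox1, which degrades haem, was at 812, 1151 and 598 in tRNA-Phe-1-1-/- and 809, 486 and 409 in tRNA-Phe-3-1-/- (adjusted p = 0.153). These textbook targets did not pass the test and overlapped. Gsta1 and Gsta2 belong to this list too, of which 4 members were called in the fit of 6 livers.

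Targets of PPAR-alpha, the receptor that turns on fatty acid oxidation in fasting, were lower where called but for 1 gene. Of 36 tested, 10 fell and 1 rose (30.6% called), 33 differences were below 0, and the median was -0.41. Ehhadh, an enzyme of peroxisomal oxidation, was at 8123, 7329 and 8119 in tRNA-Phe-1-1-/- and 13927, 16017 and 14079 in tRNA-Phe-3-1-/-, a log2 difference of -0.90 ± 0.10 (adjusted p = 0.000423). Acaa1b, a peroxisomal thiolase, was at 17426, 9300 and 22318 in tRNA-Phe-1-1-/- and 30840, 62468 and 48197 in tRNA-Phe-3-1-/-, a difference of -1.56 ± 0.31 (adjusted p = 0.00673). Bdh1, which makes the ketone body hydroxybutyrate, was at 3996, 2478 and 4586 in tRNA-Phe-1-1-/- and 6183, 8482 and 8266 in tRNA-Phe-3-1-/-, a difference of -1.08 ± 0.20 (adjusted p = 0.00519). The groups of these 3 did not overlap. Cyp4a10, a fatty acid hydroxylase, was at 5963, 4596 and 5080 in tRNA-Phe-1-1-/- and 7981, 18347 and 17751 in tRNA-Phe-3-1-/-, a difference of -1.41 ± 0.26 (adjusted p = 0.00503). Here tRNA-Phe-3-1-/- B and C were far above tRNA-Phe-3-1-/- A and above the WT livers at 7403, 6415 and 7373. Smaller falls were those of Plin2, the coat of lipid droplets (-0.69 ± 0.14, adjusted p = 0.00905), and Acadm, the medium-chain dehydrogenase (-0.50 ± 0.11, adjusted p = 0.0134).

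Angptl4, an inhibitor of lipoprotein lipase, was the PPAR-alpha target that rose, at 4139, 2496 and 4822 in tRNA-Phe-1-1-/- and 1033, 1920 and 1685 in tRNA-Phe-3-1-/-, a log2 difference of 1.30 ± 0.39 (adjusted p = 0.0425), a call lost without tRNA-Phe-1-1-/- A or C or tRNA-Phe-3-1-/- A or C (adjusted p from 0.0767 to 0.13). Cpt1a, the gate of mitochondrial oxidation, was at 14626, 12217 and 15917 in tRNA-Phe-1-1-/- and 12990, 16053 and 14463 in tRNA-Phe-3-1-/- (adjusted p = 0.896). Its groups overlapped. The list count was 4 in the fit of 6 livers and 8 to 13 when 1 of these was left out, with 8 without tRNA-Phe-1-1-/- B.

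Lipid synthesis did not move one way. Of 23 genes of fatty acid synthesis, 2 rose and 5 fell. Insig2, a retainer of the sterol sensor in the ER, was at 2947, 3615 and 2792 in tRNA-Phe-1-1-/- and 7048, 6473 and 7699 in tRNA-Phe-3-1-/-, a log2 difference of -1.19 ± 0.12 (adjusted p = 0.000202). Elovl3, a fatty acid elongase, was at 3166, 3505 and 2084 in tRNA-Phe-1-1-/- and 8537, 10656 and 13862 in tRNA-Phe-3-1-/-, a difference of -1.92 ± 0.33 (adjusted p = 0.00367). Both were separate between the groups. Fasn, fatty acid synthase, was at 29368, 29352 and 51740 in tRNA-Phe-1-1-/- and 24775, 28154 and 20684 in tRNA-Phe-3-1-/- (adjusted p = 0.361). Srebf1, a regulator of Fasn, was at 6331, 8687 and 9265 in tRNA-Phe-1-1-/- and 8283, 9277 and 9573 in tRNA-Phe-3-1-/- (adjusted p = 0.404). Neither passed the test, and the WT livers were above all 6 for Srebf1, at 16826, 13746 and 16062. Of 26 genes of triglyceride assembly and storage 2 rose and 4 fell, among them the lipase Ces1g at 2001, 1390 and 3192 in tRNA-Phe-1-1-/- and 4365, 6463 and 7026 in tRNA-Phe-3-1-/-, a difference of -1.49 ± 0.26 (adjusted p = 0.00364) with no overlap.

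In cholesterol synthesis 3 of 25 genes rose and 4 fell. Sqle, squalene epoxidase, was at 4441, 5447 and 4119 in tRNA-Phe-1-1-/- and 1723, 1770 and 3131 in tRNA-Phe-3-1-/-, a log2 difference of 1.13 ± 0.26 (adjusted p = 0.0141). Sc5d, a late enzyme, was at 12281, 11154 and 13690 in tRNA-Phe-1-1-/- and 26167, 20507 and 24530 in tRNA-Phe-3-1-/-, a difference of -0.94 ± 0.11 (adjusted p = 0.000442). The groups were thus separate in opposite directions within 1 pathway. Pmvk, an early enzyme, was at 814, 984 and 1094 in tRNA-Phe-1-1-/- and 2033, 1741 and 1607 in tRNA-Phe-3-1-/-, a difference of -0.90 ± 0.15 (adjusted p = 0.00298), and all WT livers were above both groups, at 3036, 2892 and 3239. The cholesterol count fell to 4 without tRNA-Phe-1-1-/- A and to 4 without tRNA-Phe-1-1-/- B.

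Among 27 genes of glucose metabolism 5 rose and 2 fell. Pck1, which controls gluconeogenesis, was at 93794, 106521 and 104314 in tRNA-Phe-1-1-/- and 51753, 39306 and 42376 in tRNA-Phe-3-1-/-, a log2 difference of 1.20 ± 0.25 (adjusted p = 0.00814). Foxo1, a transcription factor that raises Pck1, was at 909, 1191 and 1024 in tRNA-Phe-1-1-/- and 577, 500 and 521 in tRNA-Phe-3-1-/-, a difference of 0.96 ± 0.11 (adjusted p = 0.00039). For both, every tRNA-Phe-1-1-/- liver was above every tRNA-Phe-3-1-/- liver. Pfkfb1, which makes and removes a regulator of glycolysis, was at 1205, 1530 and 1437 in tRNA-Phe-1-1-/- and 446, 500 and 598 in tRNA-Phe-3-1-/-, a difference of 1.44 ± 0.15 (adjusted p = 0.000266). Ppp1r3c, which brings a phosphatase to glycogen, went down, at 572, 410 and 743 in tRNA-Phe-1-1-/- and 2920, 2353 and 3452 in tRNA-Phe-3-1-/-, a difference of -2.36 ± 0.30 (adjusted p = 0.000749). Its WT livers, at 7862, 3351 and 4962, were within or above the range of tRNA-Phe-3-1-/-.

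Phenylalanine itself is broken down in the liver. Of 11 genes of phenylalanine and tyrosine breakdown, 5 fell and 1 rose (54.5% called, against 16.1% of all genes), at a median of -0.28. Of these 11, edgeR called 4 over 12 livers, and limma called 1 in the fit of 6 livers. Hgd, an enzyme of tyrosine breakdown, was at 12186, 14987 and 14144 in tRNA-Phe-1-1-/- and 18373, 17238 and 18108 in tRNA-Phe-3-1-/-, a log2 difference of -0.38 ± 0.10 (adjusted p = 0.0203), a call lost without tRNA-Phe-1-1-/- A or tRNA-Phe-3-1-/- A or C (adjusted p from 0.0544 to 0.0791). Tat, tyrosine aminotransferase and a classic glucocorticoid target, was at 37282, 79943 and 43574 in tRNA-Phe-1-1-/- and 31650, 14211 and 24214 in tRNA-Phe-3-1-/-, a difference of 1.19 ± 0.30 (adjusted p = 0.0217), a call lost without tRNA-Phe-1-1-/- B or tRNA-Phe-3-1-/- B (adjusted p from 0.0591 to 0.0618). Both had separate groups. The count of the list was 3 without tRNA-Phe-1-1-/- A, 3 without tRNA-Phe-1-1-/- B, and 3, 1 and 2 without tRNA-Phe-3-1-/- A, B and C.

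Of 16 carriers of neutral amino acids 3 rose (18.8% called, near the 16.1% of all genes). None was called in the fit of 6 livers, and 1 was called without tRNA-Phe-1-1-/- A. Slc38a2, the carrier that amino acid shortage raises, was at 6790, 13193 and 6658 in tRNA-Phe-1-1-/- and 4059, 4598 and 3156 in tRNA-Phe-3-1-/-, a log2 difference of 1.11 ± 0.23 (adjusted p = 0.0084) with no overlap. Slc16a10, a carrier of aromatic amino acids such as phenylalanine, was at 6655, 5657 and 4554 in tRNA-Phe-1-1-/- and 3140, 3693 and 4284 in tRNA-Phe-3-1-/-, a difference of 0.60 ± 0.15 (adjusted p = 0.0193), a call lost without tRNA-Phe-1-1-/- A or tRNA-Phe-3-1-/- A (adjusted p from 0.0622 to 0.0742). In the urea cycle and its surroundings 3 of 23 rose and 3 fell (26.1% called). None was called in the fit of 6 livers, and 3 were called without tRNA-Phe-3-1-/- C. Asl, which releases arginine, was at 15996, 15682 and 19459 in tRNA-Phe-1-1-/- and 12340, 12333 and 10673 in tRNA-Phe-3-1-/-, a difference of 0.53 ± 0.10 (adjusted p = 0.00677). Its groups were separate.

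Cell cycle genes spread widely in both groups. Of 43 tested, 4 fell and 1 rose (11.6% called, against 16.1% of all genes), with 37 differences below 0 and a median of -0.89. Mki67, a marker of cycling cells, was at 137, 271 and 92.1 in tRNA-Phe-1-1-/- and 503, 163 and 549 in tRNA-Phe-3-1-/-, a log2 difference of -1.23 ± 0.44 (adjusted p = 0.0785). Top2a, a topoisomerase of mitosis, was at 70.6, 170 and 44 in tRNA-Phe-1-1-/- and 286, 101 and 334 in tRNA-Phe-3-1-/- (adjusted p = 0.085). In both, tRNA-Phe-3-1-/- B lay below tRNA-Phe-1-1-/- B, and tRNA-Phe-3-1-/- A and C were above every other liver of the 12. With edgeR 9 were called, and with limma the number was 20 without tRNA-Phe-3-1-/- B and 10 without tRNA-Phe-1-1-/- B, and it was 0, 1, 1 and 1 without tRNA-Phe-1-1-/- A, tRNA-Phe-1-1-/- C, tRNA-Phe-3-1-/- A and tRNA-Phe-3-1-/- C. Of 19 p53 targets 4 rose, with Zmat3, an RNA-binding protein, at 398, 440 and 313 in tRNA-Phe-1-1-/- and 221, 198 and 240 in tRNA-Phe-3-1-/-, a difference of 0.79 ± 0.15 (adjusted p = 0.00488). Thus 21.1% of the p53 targets were called, against 16.1% of all genes. Their count was 1 without tRNA-Phe-1-1-/- A, without tRNA-Phe-1-1-/- B or without tRNA-Phe-3-1-/- B and 2 without tRNA-Phe-3-1-/- C. Of 24 replication-dependent histone genes 1 fell, H2ac20, with a difference of -0.69 ± 0.15 (adjusted p = 0.00951).

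The remaining lists cover sex, liver zone, plasma proteins and housekeeping. Of 20 genes that are higher in female than in male liver, 2 rose and 5 fell, at a median of -0.66. Cyp17a1, a steroid lyase of this list, was at 1064, 5343 and 905 in tRNA-Phe-1-1-/- and 390, 162 and 145 in tRNA-Phe-3-1-/-, a log2 difference of 3.04 ± 0.59 (adjusted p = 0.0062), or 2.22 without tRNA-Phe-1-1-/- B. Of 39 genes higher in males, 2 rose and 4 fell, and 3 were called without tRNA-Phe-1-1-/- A. Pericentral hepatocyte genes had 1 of 24 called, Cyp2a5, and 5 without tRNA-Phe-3-1-/- A. Periportal genes had 4 of 21 called, 1 higher and 3 lower, and 2 without tRNA-Phe-1-1-/- A, tRNA-Phe-1-1-/- C or tRNA-Phe-3-1-/- C. Hsd17b6, a periportal steroid dehydrogenase, was at 768, 1799 and 1310 in tRNA-Phe-1-1-/- and 9904, 9563 and 3723 in tRNA-Phe-3-1-/-, a difference of -2.53 ± 0.46 (adjusted p = 0.00463) with no overlap. Of 31 plasma proteins and apolipoproteins 4 fell and none rose, and the count was 1 without tRNA-Phe-1-1-/- A, 9 without tRNA-Phe-1-1-/- C and 1 without tRNA-Phe-3-1-/- C. Alb, which encodes albumin, was at 1308113, 1786457 and 1575849 in tRNA-Phe-1-1-/- and 2477751, 2044289 and 2008874 in tRNA-Phe-3-1-/- (adjusted p = 0.254). Of 34 complement and coagulation proteins 1 rose and 4 fell, with 2 called without tRNA-Phe-1-1-/- A and 3 without tRNA-Phe-1-1-/- B or tRNA-Phe-3-1-/- A. Of 38 proteasome subunits 4 fell, and 1 or 2 were called without tRNA-Phe-1-1-/- A or C or tRNA-Phe-3-1-/- A or B. None of 11 mitochondrially encoded protein genes was called by limma or edgeR, and 1 had an unadjusted p under 0.05.

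**Figure D5:**
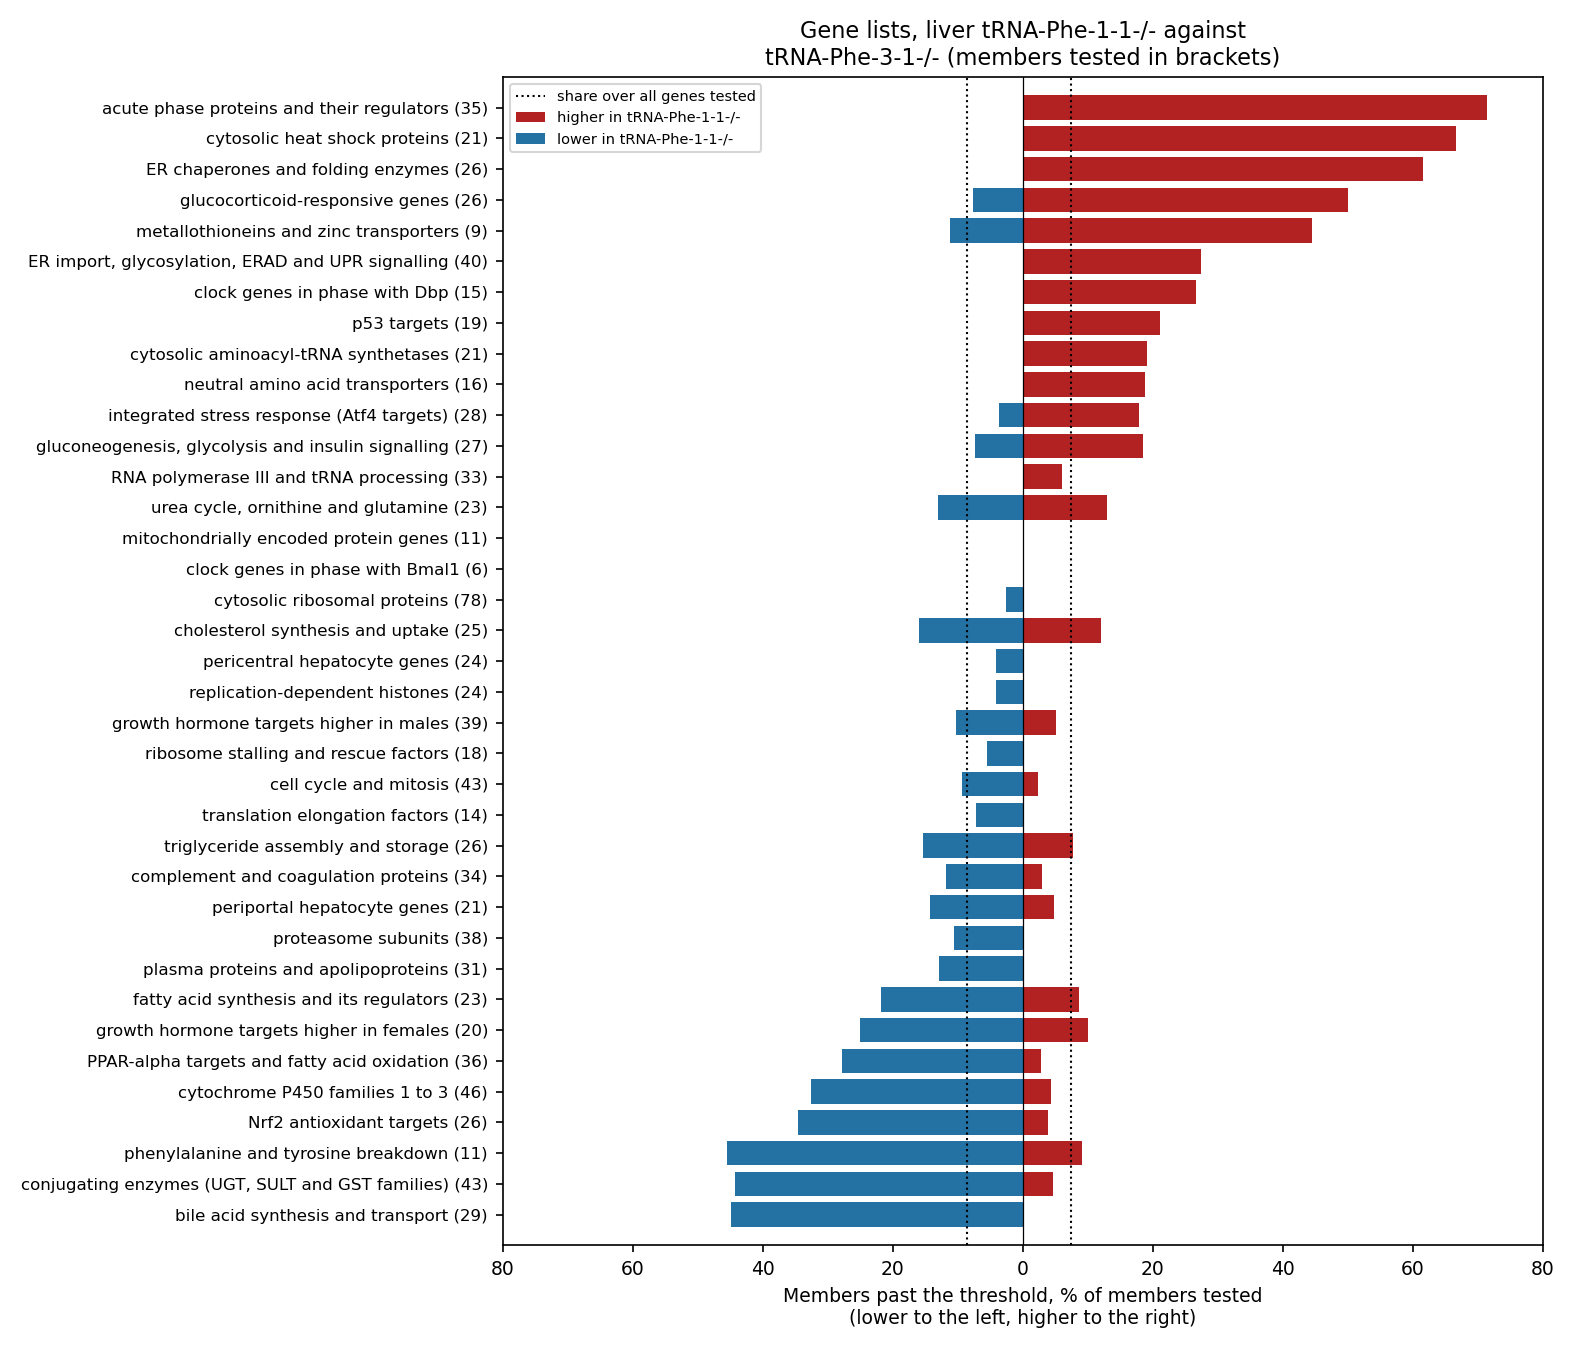
For 37 gene lists, the share of tested members that were higher (to the right, red) or lower (to the left, blue) in tRNA-Phe-1-1-/-, in percent of the members tested, which stand in brackets. The dotted lines mark the shares over all 15856 genes tested, 8.63% lower and 7.45% higher. Acute phase, heat shock and ER chaperone lists reach farthest to the right, and phenylalanine breakdown, bile acid and conjugating enzyme lists farthest to the left.

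Sinusoidal endothelial markers went both ways, with 1 of 13 higher and 3 lower. Kdr, a receptor of vascular growth factor, was at 2401, 1872 and 2654 in tRNA-Phe-1-1-/- and 3782, 3571 and 3550 in tRNA-Phe-3-1-/-, a log2 difference of -0.67 ± 0.13 (adjusted p = 0.00581) with no overlap. Of 11 Kupffer cell markers 1 was higher and 1 lower (18.2% called, against 16.1% of all genes). Their median was -0.25, with 9 of the 11 differences below 0. Cd163, the scavenger receptor of macrophages for haptoglobin with haemoglobin, was at 1495, 830 and 1235 in tRNA-Phe-1-1-/- and 407, 559 and 631 in tRNA-Phe-3-1-/-, a difference of 1.14 ± 0.27 (adjusted p = 0.0158), a call lost without tRNA-Phe-1-1-/- A or tRNA-Phe-3-1-/- A (adjusted p from 0.0523 to 0.0647). Vsig4, a complement receptor of these cells, was at 841, 570 and 595 in tRNA-Phe-1-1-/- and 1172, 830 and 1040 in tRNA-Phe-3-1-/-, a difference of -0.61 ± 0.16 (adjusted p = 0.0243), with overlapping groups and a call lost without tRNA-Phe-1-1-/- B or C or tRNA-Phe-3-1-/- A or C (adjusted p from 0.0657 to 0.0779). Clec4f, a marker particular to Kupffer cells, was at 4093, 2705 and 2960 in tRNA-Phe-1-1-/- and 4294, 3065 and 4170 in tRNA-Phe-3-1-/- (adjusted p = 0.336) and overlapped. Stellate cell markers had 2 of 14 higher (14.3%) and monocyte and macrophage markers 1 of 11 higher (9.09%). No cholangiocyte marker of 7 was called by limma or edgeR, with 1 at an unadjusted p under 0.05. Of the fat cell markers, Adipoq and Plin1 among them, 7 of 8 were under the filter, as were 8 of 10 pancreas markers. The 1 tested, Pparg, a nuclear receptor of fat storage that hepatocytes make as well, was lower, at 105, 105 and 124 in tRNA-Phe-1-1-/- and 335, 671 and 271 in tRNA-Phe-3-1-/-, a difference of -1.82 ± 0.27 (adjusted p = 0.00138) with no overlap. WT livers were at 254, 343 and 274.

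Genes near the edited loci were examined on GRCm39. Within 500000 bases on each side of tRNA-Phe-1-1, 8 of 46 annotated genes were tested, at a median log2 difference of 0.28. The nearest, Dhx37, a helicase of ribosome assembly 6323 bases away, had a difference of 0.64 (adjusted p = 0.0533). Around tRNA-Phe-3-1, 23 of 112 annotated genes were tested, many of them histone genes, and none was called by limma or edgeR, with 2 at an unadjusted p under 0.05 and a median of -0.08.

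Brain samples of the same genotypes were counted in a separate table with its own normalisation, so they are set beside the liver without a test. Hspb1 was at 365 to 496 in tRNA-Phe-1-1-/- and 102 to 186 in tRNA-Phe-3-1-/- in brain. Hsph1 was at 9103 to 10301 in tRNA-Phe-1-1-/- and 5380 to 5966 in tRNA-Phe-3-1-/-. Hspa5 was at 14754 to 17260 in tRNA-Phe-1-1-/- and 5975 to 8305 in tRNA-Phe-3-1-/-. These chaperones were thus higher in tRNA-Phe-1-1-/- in brain too, with groups that did not overlap. The share of all genes whose groups stood apart in brain is not given here. Creld2 was at 555 to 682 in tRNA-Phe-1-1-/- and 286 to 382 in tRNA-Phe-3-1-/-. Fkbp5 was at 1462 to 2239 in tRNA-Phe-1-1-/- and 714 to 1036 in tRNA-Phe-3-1-/-. Mt2 was at 960 to 1299 in tRNA-Phe-1-1-/- and 470 to 714 in tRNA-Phe-3-1-/-. None of these overlapped either, and the gap of Mt2 was far smaller than in liver. Per1, at 953 to 1259 in tRNA-Phe-1-1-/- and 692 to 1065 in tRNA-Phe-3-1-/-, overlapped in brain. Globin RNA was lower in tRNA-Phe-1-1-/- in both tissues, with brain Hba-a1 at 1563 to 1967 in tRNA-Phe-1-1-/- and 3252 to 7071 in tRNA-Phe-3-1-/-. Brain Hbb-bs was at 3664 to 4637 in tRNA-Phe-1-1-/- and 7785 to 17964 in tRNA-Phe-3-1-/-. Blood is common to the 2 organs, and its part in the liver values of other genes was not tested.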

How the data were processed

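Total RNA from pieces of liver and brain was sequenced as read pairs, with 3 mice for each of 4 genotypes and the mice taken from different litters. Per the study's methods, reads were trimmed with Trim Galore, aligned with STAR to GRCm38.p6, in which nuclear copies of mitochondrial DNA were masked, with GENCODE gene models, and quantified with Salmon as strand-aware estimates corrected for sequence and GC bias. The deposited liver values are a signal that the authors made by dividing each gene's rounded read count by 1 DESeq2 size factor per library, with liver and brain normalised apart. The liver table held 55469 genes, and 51714 of its identifiers (93.2%) were paired with a symbol. The authors' comparison tables hold fold changes and error rates and were not used.

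Dividing each value by the step of its library gave whole reads within 0.01 for 100% of liver values. Totals of the 6 libraries were 44660694, 45204856 and 40733371 reads in tRNA-Phe-1-1-/- (A, B, C) and 43737347, 37310878 and 45018766 in tRNA-Phe-3-1-/-.

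A linear model of 4 genotypes over the 12 livers, with a trended empirical Bayes variance, was fitted by limma (version 3.58.1, under R 4.3.3) to values raised by 1 and put on the log2 scale, and tests were two-sided. A quasi-likelihood fit by edgeR (version 4.0.16) of the recovered reads was an alternative, beside other pseudocounts, filters and scalings, a term for the shared letter and fits without 1 liver. Genes with a mean of at least 10 over the livers were tested and called at a Benjamini-Hochberg adjusted p under 0.05, and differences carry the standard error of the model. Differences on this scale understate the change of genes with low counts. All adjusted p-values are from this model and are adjusted over all genes tested. In simulated counts of 15732 genes for this comparison, with 200 changed, 148 were recovered with 8 false calls. Those recovered were 49 of 90 changed 2-fold and 99 of 108 changed 4-fold. Far fewer genes were changed there than the 2550 called here, and each gene was drawn independently. These rates are therefore not those of the comparison itself. Samples of different genotype that share a letter did not deviate together (correlations of -0.179, -0.112 and 0.137 for A, B and C), so letters were treated as names.

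The comparison, the 37 pathway lists and the 11 lists of cell type markers were chosen with earlier results of these data known. Genes named were the 12 largest rises and 12 largest falls among called protein-coding genes with a mean of at least 50 over the 6 livers and groups that did not overlap, the 8 protein-coding genes with the lowest adjusted p, the 4 with the lowest adjusted p in each pathway list, and Farsa, Farsb, Mt1, Mt2, Bmal1, Npas2, Dbp, Per1, Per2 and Nr1d1. Genes named outside this rule were picked from the lists after their values were seen. These were Acadm, Alb, Alg12, Angptl4, Asns, Atf4, Bag3, Calr, Canx, Chordc1, Clec4f, Cpt1a, Crp, Cth, Cyp2b10, Cyp2b9, Cyp3a11, Cyp7a1, Cyp8b1, Ddit3, Dnajc3, Dusp1, Fasn, Gclm, Gsta4, Herpud1, Hmox1, Hnrnpa3, Hp, Hsp90ab1, Hsp90b1, Hspa1a, Hspa1b, Hspa5, Hspa8, Hspe1, Hyou1, Manf, Mki67, Nqo1, Nr0b2, Nr3c1, Orm2, Pdia6, S100a8, S100a9, Sgk1, Socs3, Srebf1, Stat3, Tdo2, Top2a, Trib3, Tsc22d3, Xbp1 and Zbtb16. Por, Ugt2b37, the cell type markers and the genes near the edited loci were picked in the same way. A few genes that the rule names are not reported here. Positions of named genes and promoter sequences are those of RefSeq on GRCm38.p6, and the tRNA windows and their neighbours were located on GRCm39.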

Additional observations from a re-analysis of the deposited data

Results flagged for a closer look

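At 6 genes of the lists the 3 livers of each knockout did not overlap and the 3 brains did not overlap either, with the order of the knockouts turned round. The difference between the tissues was not tested, and the tissues were normalised apart. In liver alone, the groups did not overlap at 31.8% of all genes. The share of all genes apart in brain, or apart in both tissues with the order turned round, is not given here. The 6 genes are therefore a description only. The liver log2 difference of Sqle, squalene epoxidase, was 1.13, while its brain counts were 1296 to 1553 in tRNA-Phe-1-1-/- and 1605 to 2172 in tRNA-Phe-3-1-/-. That of Acaa1b, a peroxisomal thiolase, was -1.56, with 15.6 to 33.2 and 5.24 to 11.9 in brain. That of Ppp1r3c, which brings a phosphatase to glycogen, was -2.36, with 2114 to 2629 and 1494 to 2053 in brain. That of Asl, which releases arginine in the urea cycle, was 0.529, with 231 to 284 and 294 to 463 in brain. That of Cenpa, a histone variant of the centromere, was -0.894, with 59.6 to 80.2 and 28.6 to 55.0 in brain. That of Cth, which makes cysteine from cystathionine, was -0.854, with 107 to 158 and 47.1 to 97.0 in brain. The liver call of Cenpa was lost without tRNA-Phe-1-1-/- A, B or C or tRNA-Phe-3-1-/- A or C (adjusted p from 0.0582 to 0.112), and that of Cth without tRNA-Phe-1-1-/- A or C or tRNA-Phe-3-1-/- A, B or C (adjusted p from 0.0514 to 0.109).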

How the results depend on the processing

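The count of 2550 genes was 931 (463 higher, 468 lower) in the limma fit of the 6 livers alone and 908 (465 higher, 443 lower) with edgeR 4.0.16 on the recovered reads of those 6. Leaving out 1 of the 12 livers gave 1512 to 2474 genes, 630 to 1129 higher and 880 to 1383 lower, and 1167 genes were called in all 6 fits that lacked 1 of the 6 livers compared. The other settings kept the count within 1.5 times: 2546 genes with edgeR on the reads of 12 livers (2443 shared), 2527 and 2554 with other pseudocounts, 2050 of 28430 without a filter, 2540 of 12462 with a mean of at least 50, 2566 after quantile normalisation, 2560 (1004 higher, 1556 lower) after trimmed rescaling and 2062 without the variance trend. With the replicate block, the shared letter as a term, it was 2151 (994 higher, 1157 lower). Of 263 genes examined singly none changed sign in any of these fits. The number that lost its call was 81 in the fit of 6 livers, 49 without tRNA-Phe-1-1-/- A, 28 with the block and 5 with edgeR. Of 37 pathway lists, 28 had a count more than 1.5 times away in the fit of 6 livers, and 8 to 15 did when 1 of the 6 was left out. The edgeR fits were chosen after seeing the data. The cause of these changes was not tested. Each group had 3 livers. In simulated data with as many livers, where only 200 genes were changed, 49 of 90 genes changed 2-fold were recovered.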
